A study of Mus musculus with 32 samples.

Results

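Tumor cells of the MMTV-PyMT mouse breast cancer model were compared between week 3 (n = 4 libraries) and week 2 (n = 3), which the series describes as the middle and the early stage of tumor growth. These 7 libraries are those the labels call tumor cells of week 3 and week 2, of 32 libraries in the series; 4 tumor libraries of week 4 entered the same fit. All 3 groups are breast cancer cells of the MMTV-PyMT line with no treatment in their labels, in which a promoter active in mammary epithelium drives a viral oncogene, and the labels give no strain, age or sex of the host and no day from which the weeks are counted. Whether the replicates of a week are different animals is not labelled; p-values therefore measure the spread between these libraries, which may be technical in part. RNA was extracted from the cells, libraries were made with a stranded mRNA kit, and values are TPM, in which reads are divided by gene length and each library is brought to the same sum.

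A growing mammary tumor is built of luminal and basal epithelial cells, and of fibroblasts, vessels and leukocytes around them. Tumor cells make much of their own lipid: sterol-sensing transcription factors of the SREBP family switch on the enzymes of cholesterol and fatty acid synthesis, and acyltransferases such as Mogat1 join fatty acids into diacylglycerol and triacylglycerol. Low oxygen stabilises hypoxia-inducible factors, which raise glycolytic enzymes, and interferons released by or near leukocytes switch on antiviral genes and antigen presentation.

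The label was checked against epithelial markers. Epcam, an epithelial adhesion protein, stood at 433, 513, 389 and 498 TPM at week 3, against 283, 249 and 384 TPM at week 2. Krt8, a luminal keratin, stood at 558, 672, 479 and 589 TPM at week 3, against 335, 326 and 437 TPM at week 2. Both were high in all 7 libraries, and leukocyte RNA was present beside them: the 10 pan-leukocyte markers summed to 239.9, 216, 405 and 474 TPM at week 3, against 1008, 253 and 481 TPM at week 2. Week 2 replicate 1 held the highest sum, above every week 3 library. In bulk RNA, fewer cells of a type and less RNA per cell cannot be told apart.

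Week 2 replicates 2 and 3 stood apart from the other 5 libraries in another way. Transcripts were cut into 5 bins of equal size by length and by GC content. The median level of the bin of longest transcripts relative to the shortest, as a log2(TPM + 1) difference from each gene's mean over the libraries, was -0.034, 0.13, 0.049 and 0.11 at week 3, against 0.055, -0.34 and -0.42 at week 2. The same difference between the bins of high and low GC content was 0.12, 0.092, 0.10 and 0.12 at week 3, against 0.12, -0.48 and -0.61 at week 2. Mitochondrially encoded genes took 7.19% to 9.70% of TPM at week 3, against 6.38%, 10.4% and 12.7% in week 2 replicates 1, 2 and 3. The part of these differences in the results below was not tested. List counts are also given after a length and GC correction of each library, chosen after seeing the data, and without week 2 replicate 2. The last keeps replicate 3, so does not test these differences.

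**Figure D1:**
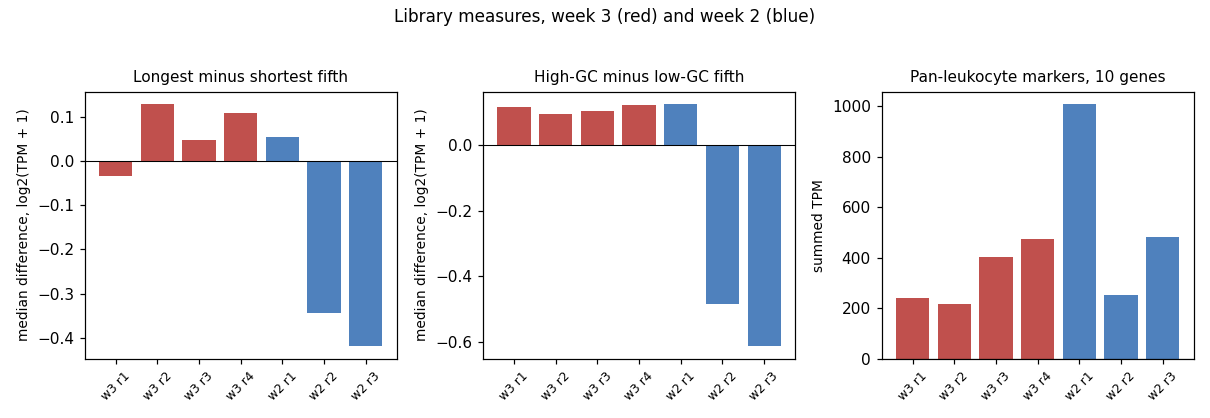
Library measures for the 4 week 3 libraries (red, left) and 3 week 2 libraries (blue, right): median log2(TPM + 1) difference of the longest minus the shortest of 5 bins of transcripts, the same for high minus low GC content, and the summed TPM of 10 pan-leukocyte markers. Week 2 replicates 2 and 3 lie at -0.34 and -0.42 for length and -0.48 and -0.61 for GC content, and week 2 replicate 1 has the highest leukocyte sum.

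Of 14770 genes tested on log2(TPM + 1), 3560 (24.1%) passed an adjusted p of 0.05 in limma: 2967 rose (20.1%) and 593 fell (4.01%). A log2 fold change of at least 1 in size was reached by 494 of those that rose and 176 of those that fell. The median log2 fold change of all tested genes was 0.14, so directions are read against that shift; after median-of-ratios rescaling it was -0.016, and 1952 genes rose (13.2%) and 1418 fell (9.59%) of 14790 tested, 22.8% in all. The length and GC correction left 1719 higher and 918 lower. Without week 2 replicate 2 the counts were 1256 higher and 126 lower, and without week 2 replicate 1 they were 4725 and 1037. Without week 2 replicate 3 they were 2265 and 851. Without week 3 replicate 1 they were 2178 and 308, and without week 3 replicate 2 they were 2696 and 602. Without week 3 replicate 3 they were 1949 and 320, and without week 3 replicate 4 they were 1941 and 308. The count of a list under a setting is read beside the count of all genes under that setting. With all libraries, the shares of all genes, 20.1% higher and 4.01% lower, apply to every list below. Counts for a list after rescaling or without 1 of the other libraries are given where they differ from those of all libraries by over 1.5 times and by more than 1 gene. Of the genes named here, 99 lost their call without week 2 replicate 2, which leaves 2 libraries at week 2; their log2 fold changes were then 0.627 to 1.23 times those with all libraries (median 0.855). In a fit of weeks 2 and 3 alone, without the week 4 libraries, 75 of the named genes lost their call. Genes whose week 3 libraries all lay above all week 2 libraries made up 21.2%, and those with all below 5.64%. In what follows, a bare number in brackets after a gene is its log2 fold change of week 3 over week 2, and p-values are limma's, adjusted by Benjamini-Hochberg over all tested genes.

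The share of genes called higher differed with transcript length and GC content. It was 7.50% in the bin of shortest transcripts and 30.1% in the longest, and 6.26% in the bin of lowest GC content and 33.2% in the highest. Shares called lower were 6.72% and 2.78% by length, and 8.36% and 1.74% by GC content. Across the 14052 genes with a value (95.1% of those tested), fold changes had a Spearman rho of 0.23 with length and 0.33 with GC content; genes are not independent replicates.

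**Figure D2:**
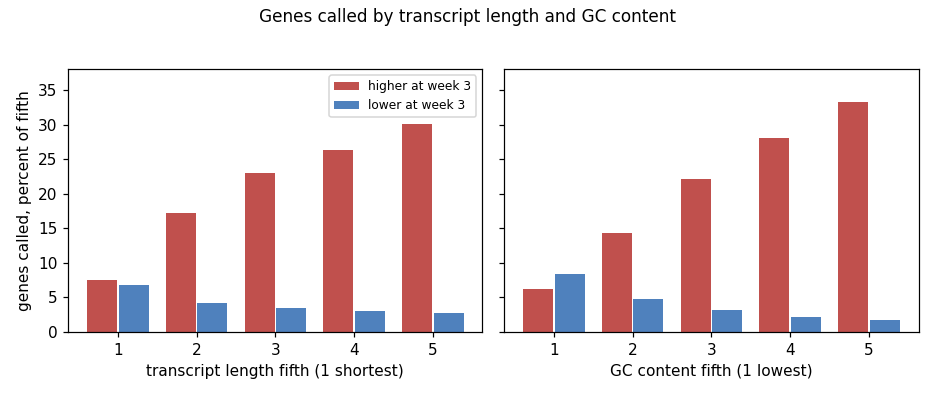
Percent of genes called higher (red) or lower (blue) at week 3 in each of 5 bins of transcript length (left, shortest first) and of GC content (right, lowest first). The share called higher is 7.50% in the shortest and 30.1% in the longest bin, and 6.26% in the lowest and 33.2% in the highest GC bin.

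Mogat1, the acyltransferase that makes diacylglycerol and the gene in the title of the series (ENSMUSG00000012187.13, GRCm38 chromosome 1, 78510991 to 78538173), stood at 4.46, 7.73, 5.71 and 9.37 TPM at week 3, against 1.94, 1.02 and 3.87 TPM at week 2. Every week 3 library lay above every week 2 library. It rose (log2 fold change 1.31, SE 0.28, adjusted p = 0.00834), and after the length and GC correction the log2 fold change was 1.49 (adjusted p = 0.00548). At week 4 the level was 37.1 ± 1.75 TPM (n = 4).

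Of the list of triacylglycerol and phospholipid synthesis, 5 of 17 tested members rose, a share near the 20.1% of all genes, and 0 fell (median log2 fold change 0.21). Beside Mogat1 these were Pcyt2 and Chka, enzymes of phosphatidylethanolamine and phosphatidylcholine synthesis, and Lpin1 and Lpin3, phosphatidate phosphatases. Pcyt2 was at 78.1, 64.1, 69.5 and 75.2 TPM at week 3, against 39.8, 29.1 and 43.4 TPM at week 2 (log2 fold change 0.94, SE 0.15, adjusted p = 0.00197). Smaller rises were those of Chka (0.61) and Lpin3 (0.66). Dgat1, which adds the last acyl chain of triacylglycerol, was at 33.3, 36.0, 31.3 and 40.7 TPM at week 3, against 55.1, 27.2 and 32.5 TPM at week 2, with overlapping groups (log2 fold change -0.055, SE 0.20, adjusted p = 0.867). For triacylglycerol and phospholipid synthesis, 4 rose and 2 fell after the length and GC correction (median -0.012), and 5 and 0 without week 2 replicate 2. Counts were 10 and 0 without week 2 replicate 1, and 5 and 2 without week 2 replicate 3. Lpin3 did not pass after the length and GC correction (adjusted p = 0.196).

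The 15 largest rises among genes that passed, did not overlap and averaged 5 TPM or more included matrix, adhesion and signalling genes. Fmod, a collagen-binding proteoglycan, was at 24.5, 46.3, 45.4 and 30.5 TPM at week 3, against 10.4, 5.23 and 6.20 TPM at week 2. All week 3 libraries lay above all week 2 libraries, as the choice of these genes requires (log2 fold change 2.19, SE 0.37, adjusted p = 0.00282), and the week 4 level was 7.99 ± 4.96 TPM. Lama5, a laminin chain, stood at 129.8, 116, 117 and 134 TPM at week 3, against 44.6, 23.6 and 30.7 TPM at week 2 (log2 fold change 1.92, SE 0.18, adjusted p = 0.000393). Eln, elastin, was at 1011, 1238, 1384 and 1209 TPM at week 3, against 501, 238 and 276 TPM at week 2 (log2 fold change 1.91, SE 0.21, adjusted p = 0.000464). Week 4 levels were 149.9 ± 16.7 TPM for Lama5 and 497 ± 31.1 TPM for Eln. Tgfa, a ligand of the EGF receptor, was at 21.0, 24.4, 25.3 and 24.6 TPM at week 3, against 6.43, 3.51 and 6.80 TPM at week 2 (log2 fold change 1.95, SE 0.18, adjusted p = 0.000396), and 32.1 ± 4.04 TPM at week 4. Ptprf, a receptor phosphatase, was at 129, 122, 122 and 136 TPM at week 3, against 50.6, 21.9 and 31.9 TPM at week 2 (log2 fold change 1.92, SE 0.21, adjusted p = 0.000457). Fat1, a large cadherin, was at 142, 159.7, 176 and 164 TPM at week 3, against 77.8, 28.3 and 33.2 TPM at week 2 (log2 fold change 1.91, SE 0.27, adjusted p = 0.00121). Ptprf and Fat1 had 205 ± 14.6 TPM and 91.7 ± 12.2 TPM at week 4. Transcripts of Lama5, Ptprf and Fat1 have 11388, 7656 and 14814 bases, within the bin of longest transcripts. After the length and GC correction, log2 fold changes were 1.24 for Lama5, 1.31 for Ptprf and 1.44 for Fat1. They were 1.41 for Eln, 1.66 for Tgfa and 1.89 for Fmod, and all 6 genes still passed.

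Nptx1, a secreted pentraxin, was at 63.4, 60.7, 58.9 and 79.3 TPM at week 3, against 27.9, 10.2 and 13.2 TPM at week 2 (log2 fold change 1.99, SE 0.25, adjusted p = 0.000799). Saa2, an acute phase protein, was at 7.39, 18.5, 6.19 and 12.5 TPM at week 3, against 2.84, 1.27 and 1.29 TPM at week 2 (log2 fold change 2.05, SE 0.36, adjusted p = 0.00334). Their week 4 levels were 114 ± 5.87 TPM and 9.32 ± 3.03 TPM. Further rises were Aatk (1.87), Megf6 (1.78), Gpr37l1 (1.75) and Col10a1 (1.82). Col10a1, a collagen, stood at 26.1, 38.2, 50.2 and 33.9 TPM at week 3, against 14.5, 12.3 and 4.59 TPM at week 2 and at 3.86 ± 2.46 TPM at week 4, below both earlier weeks on average. Week 4 levels of Aatk, Megf6 and Gpr37l1 were 23.6 ± 2.78 TPM, 21.4 ± 4.31 TPM and 17.0 ± 2.07 TPM. Corrected for length and GC content, log2 fold changes were 1.54 for Nptx1, 1.81 for Saa2, 1.24 for Aatk and 1.63 for Col10a1, all still past the threshold. The rows of 2 miRNA genes also rose, in libraries that were not made for short RNA. Mir6922 lies inside Srebf1 on the same strand, and Srebf1 rose too, so these rows are not separate loci. Whether the Mir6922 reads come from Srebf1 transcripts was not tested. Mir6922 averaged 17.0 ± 7.22 TPM at week 3 and 4.24 ± 2.87 TPM at week 2 (SD; log2 fold change 1.81, SE 0.46, adjusted p = 0.0177), with 29.3 ± 13.9 TPM at week 4. Mir378b averaged 6.93 ± 2.21 TPM at week 3 and 2.05 ± 2.88 TPM at week 2 (SD; log2 fold change 1.78, SE 0.58, adjusted p = 0.0446), with 4.89 ± 3.12 TPM at week 4. Calls ended without week 2 replicate 3 for Mir6922, week 2 replicates 1 or 3 or week 3 replicates 1, 2, 3 or 4 for Mir378b (adjusted p = 0.059 to 0.155). After the length and GC correction Mir378b did not pass (adjusted p = 0.0943). Mir378b did not pass once rescaled (adjusted p = 0.0605).

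Snord14d, a box C/D small nucleolar RNA inside the heat shock gene Hspa8, was at 268, 85.5, 279.9 and 201 TPM at week 3, against 39.9, 49.2 and 53.9 TPM at week 2. Week 3 replicate 2 was the lowest of its group and still above week 2 (log2 fold change 1.98, SE 0.35, adjusted p = 0.00368); the week 4 level was 213 ± 47.9 TPM. Of the list of box C/D RNAs and their hosts, 3 of 19 tested members rose, a share near the 20.1% of all genes, and 2 fell (median log2 fold change 0.0059). Snord14c was at 169, 27.4, 166 and 104 TPM at week 3, against 34.0, 29.1 and 18.9 TPM at week 2 (log2 fold change 1.80, SE 0.52, adjusted p = 0.0292). Snord14e was at 207, 55.6, 254 and 187 TPM at week 3, against 55.2, 61.0 and 61.9 TPM at week 2 (log2 fold change 1.35, SE 0.41, adjusted p = 0.0359). Both overlapped week 2 through week 3 replicate 2. Snord15b fell (log2 fold change -1.38, SE 0.43, adjusted p = 0.0386). Without week 2 replicate 2 these 3 log2 fold changes were 1.86, 1.37 and -1.40. Hspa8 itself was at 2067, 2086, 2059 and 2002 TPM at week 3, against 2478, 2301 and 2041 TPM at week 2, with no call (log2 fold change -0.14, SE 0.10, adjusted p = 0.33). The sequences are printed because Snord14c and Snord14d differ by 2 bases, written from the first sequence's base, counted from 1 at its 5′ end, to the second's (G47A and A49G), so counts can be split between these copies. Capitals mark the box C-like and box D motifs (GENCODE M21, GRCm38). For box C/D small nucleolar RNAs and host genes, 5 rose and 1 fell after the length and GC correction (median 0.19), and 1 and 0 without week 2 replicate 2. Counts were 1 and 0 without week 2 replicate 3 or week 3 replicate 3, and 1 and 1 without week 3 replicates 1 or 4. Snord14c, Snord14e and Snord15b passed with all libraries but not without week 2 replicate 2 (adjusted p = 0.0854 to 0.11). Calls ended too without week 2 replicate 3 or week 3 replicates 1, 3 or 4 for Snord14c, week 2 replicates 1 or 3 or week 3 replicates 1, 3 or 4 for Snord14e, week 2 replicate 3 or week 3 replicate 3 for Snord15b (adjusted p = 0.0581 to 0.11). Rescaled, Snord14e did not pass (adjusted p = 0.0577). Hspa8 (-0.31, adjusted p = 0.047) passed after rescaling.
Snord14c (chr9:40803583-40803668, plus strand, 86 bases): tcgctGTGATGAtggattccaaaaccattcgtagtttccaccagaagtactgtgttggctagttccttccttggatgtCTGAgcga
Snord14d (chr9:40803995-40804080, plus strand, 86 bases): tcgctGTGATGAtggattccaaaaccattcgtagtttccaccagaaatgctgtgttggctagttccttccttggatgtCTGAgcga
Snord14e (chr9:40804748-40804837, plus strand, 90 bases): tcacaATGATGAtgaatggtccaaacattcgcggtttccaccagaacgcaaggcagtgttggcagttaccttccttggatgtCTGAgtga

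The largest falls included 4 mast cell proteases, described with the cell type markers. Crabp1, a retinoic acid binding protein, was at 3.51, 14.7, 24.8 and 14.0 TPM at week 3, against 160.3, 245 and 28.7 TPM at week 2 (log2 fold change -3.04, SE 0.74, adjusted p = 0.0147), and at 2.69 ± 1.68 TPM at week 4. Prl2c2, a proliferin, was at 19.4, 16.1, 8.48 and 6.14 TPM at week 3, against 105, 103 and 57.7 TPM at week 2 (log2 fold change -2.80, SE 0.34, adjusted p = 0.000696). The related Prl2c3 was at 24.1, 15.1, 5.68 and 8.79 TPM at week 3, against 64.6, 66.6 and 16.6 TPM at week 2 (log2 fold change -1.74, SE 0.50, adjusted p = 0.0283). Both of the 2 tested proliferin and prolactin genes fell, and near-identical copies make their counts uncertain. Ogn, a matrix proteoglycan, was at 37.7, 141, 98.1 and 60.9 TPM at week 3, against 379, 572 and 179 TPM at week 2 (log2 fold change -2.16, SE 0.59, adjusted p = 0.0228). Chrdl1, a BMP antagonist, was at 1.75, 9.29, 7.68 and 3.31 TPM at week 3, against 35.4, 61.9 and 11.6 TPM at week 2 (log2 fold change -2.43, SE 0.57, adjusted p = 0.0126). Week 4 levels were 0.0453 ± 0.0907 TPM for Prl2c2, 82.3 ± 42.1 TPM for Ogn and 2.44 ± 1.36 TPM for Chrdl1. In Crabp1, Chrdl1 and Ogn, week 2 replicate 3 was far below the other 2 week 2 libraries. Summed fibroblast markers were also lowest there, at 1539, 7112, 2954 and 3911 TPM at week 3, against 9435, 8893 and 2872 TPM at week 2; their part in these falls was not tested. On leaving out week 2 replicate 2, Crabp1, Chrdl1, Ogn and Prl2c3 did not reach the threshold (adjusted p = 0.0682 to 0.13). Calls also ended on leaving out week 3 replicates 1 or 4 for Ogn, week 2 replicate 1 or week 3 replicates 3 or 4 for Prl2c3 (adjusted p = 0.0581 to 0.0728). Prl2c3 did not pass after the length and GC correction (adjusted p = 0.148).

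Nppb, a natriuretic peptide, was at 19.0, 13.9, 8.86 and 3.18 TPM at week 3, against 49.8, 51.1 and 22.0 TPM at week 2 (log2 fold change -1.90, SE 0.46, adjusted p = 0.0145). Hopx, a homeodomain protein, was at 4.06, 10.6, 10.9 and 7.60 TPM at week 3, against 46.0, 47.2 and 19.4 TPM at week 2 (log2 fold change -2.03, SE 0.37, adjusted p = 0.00396). The other large falls were Angptl7 (-2.35), Spon2 (-2.01), Ccl5 (-1.96), Mir99a (-2.51) and Snora17 (-2.13). Ccl5, a chemokine that draws T cells, was at 52.3, 31.7, 43.3 and 37.9 TPM at week 3, against 321, 187 and 68.8 TPM at week 2, where week 2 replicate 3 was close to week 3. Week 4 levels were 0.0488 ± 0.0976 TPM for Nppb, 1.64 ± 0.648 TPM for Hopx, 7.71 ± 5.03 TPM for Ccl5, 0.0463 ± 0.0927 TPM for Angptl7, 17.3 ± 8.38 TPM for Spon2, 1.70 ± 2.51 TPM for Mir99a and 7.02 ± 3.41 TPM for Snora17. Leaving out week 2 replicate 2 ended the calls of Snora17, Spon2, Ccl5 and Nppb (adjusted p = 0.0543 to 0.128). Calls were also lost without week 2 replicate 1 or week 3 replicates 1, 3 or 4 for Spon2, week 3 replicate 4 for Ccl5 (adjusted p = 0.0519 to 0.0782).

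Of the enzymes that build fatty acids, 14 of 19 tested members rose and 0 fell (median log2 fold change 0.91), beside 20.1% higher and 4.01% lower over all genes. Srebf1, the SREBP factor of fatty acid genes, was at 409, 255, 357 and 377 TPM at week 3, against 173, 91.3 and 106 TPM at week 2 (log2 fold change 1.52, SE 0.21, adjusted p = 0.0011). Fasn, fatty acid synthase, stood at 227, 207, 199 and 209.7 TPM at week 3, against 116, 44.4 and 49.0 TPM at week 2 (log2 fold change 1.72, SE 0.26, adjusted p = 0.00167). Week 2 replicates 2 and 3 were the lowest for both, and week 2 replicate 1 lay between them and week 3. The desaturase Scd1 was at 204, 179, 163 and 185 TPM at week 3, against 109, 66.8 and 86.7 TPM at week 2 (log2 fold change 1.08, SE 0.15, adjusted p = 0.00107). The related Scd2 was at 308, 282, 302 and 299 TPM at week 3, against 163, 86.8 and 112 TPM at week 2 (log2 fold change 1.34, SE 0.17, adjusted p = 0.000719). Me1, which supplies NADPH for synthesis, was at 40.7, 46.9, 43.9 and 44.9 TPM at week 3, against 23.9, 21.2 and 20.8 TPM at week 2 (log2 fold change 0.98, SE 0.088, adjusted p = 0.000392), with a narrow spread in both weeks. The polyunsaturated fatty acid desaturases Fads1 (1.25) and Fads2 (1.07) and the first enzymes of the pathway, Acly (0.71) and Acaca (0.91), rose too. For fatty acid synthesis and desaturation, 12 rose and 0 fell after the length and GC correction (median 0.64), and 10 and 0 without week 2 replicate 2. Corrected log2 fold changes were 1.08 for Fasn, 1.01 for Srebf1 and 0.96 for Me1. The call of Acly ended without week 2 replicate 2 (adjusted p = 0.0962). A call also ended without week 2 replicate 3 or week 3 replicate 4 for Acly (adjusted p = 0.0519 to 0.0621).

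In cholesterol synthesis, 11 of 20 tested members rose, beside 20.1% of all genes, and 0 fell (median log2 fold change 0.43). Dhcr7, the last enzyme of the pathway, was at 50.3, 44.8, 43.3 and 47.6 TPM at week 3, against 28.3, 16.9 and 19.1 TPM at week 2, without overlap (log2 fold change 1.11, SE 0.16, adjusted p = 0.00109). Of other steps, Lss (0.94), Mvd (0.66) and Sqle (0.66) rose. Hmgcs1, an early enzyme, did not pass, at 78.2, 89.8, 79.1 and 77.9 TPM at week 3, against 60.6, 67.7 and 74.4 TPM at week 2 (log2 fold change 0.26, SE 0.094, adjusted p = 0.0625). For cholesterol synthesis, 5 rose and 0 fell after the length and GC correction (median 0.28), and 5 and 0 without week 2 replicate 2. Counts were 5 and 0 after rescaling, and 7 and 0 without week 3 replicate 1. Mvd and Sqle did not pass once length and GC content were corrected for (adjusted p = 0.0537 to 0.0542). Hmgcs1 (0.31, adjusted p = 0.0351) passed after the length and GC correction.

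Among genes of sterol sensing and uptake, 6 of 12 tested members rose, beside 20.1% of all genes, and 1 fell (median log2 fold change 0.45). Srebf2, the SREBP factor of cholesterol genes, was at 75.1, 84.0, 78.8 and 79.7 TPM at week 3, against 60.9, 29.0 and 34.7 TPM at week 2 (log2 fold change 0.99, SE 0.20, adjusted p = 0.00662). The sterol sensors and carriers Insig1 (0.61), Stard4 (0.70) and Scap (0.85) also rose, and Npc2, which exports sterol from lysosomes, fell (log2 fold change -0.47, SE 0.14, adjusted p = 0.0284). For sterol sensing and uptake genes, 5 rose and 2 fell after the length and GC correction (median 0.16), and 1 and 0 without week 2 replicate 2. No longer past the threshold without week 2 replicate 2 were Insig1, Stard4, Scap and Npc2 (adjusted p = 0.0687 to 0.0937). Further calls ended without week 2 replicate 3 for Scap, week 3 replicates 1, 3 or 4 for Npc2 (adjusted p = 0.0595 to 0.0753). Insig1 did not pass after the length and GC correction (adjusted p = 0.0684). Insig1 and Stard4 did not pass once rescaled (adjusted p = 0.0683 to 0.107).

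For lipid droplets and lipolysis, 4 of 11 tested members rose, beside 20.1% of all genes, and 0 fell (median log2 fold change 0.19). G0s2, an inhibitor of triacylglycerol lipase, was at 30.8, 22.6, 24.2 and 35.0 TPM at week 3, against 8.68, 8.25 and 14.1 TPM at week 2 (log2 fold change 1.38, SE 0.19, adjusted p = 0.00112); the droplet proteins Plin3 (0.64) and Cidea (1.13) rose. Plin2, the droplet coat protein found in most cells, was at 66.6, 63.8, 70.7 and 71.5 TPM at week 3, against 76.8, 73.3 and 58.3 TPM at week 2 (log2 fold change -0.019, SE 0.14, adjusted p = 0.939). The triacylglycerol lipase Pnpla2 (0.52) and its inhibitor Hilpda (-0.23) were also not called. For lipid droplet and lipolysis, 4 rose and 1 fell after the length and GC correction (median 0.051), and 4 and 0 without week 2 replicate 2. Hilpda (-0.40, adjusted p = 0.0483) passed after rescaling.

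For fatty acid uptake and oxidation, 6 of 22 tested members rose, a share near the 20.1% of all genes, and 0 fell (median log2 fold change 0.27). Among those that rose were the transporters Slc27a1 (0.96) and Slc27a4 (0.83). Cd36, a fatty acid translocase, was at 4.91, 8.91, 11.4 and 20.8 TPM at week 3, against 38.9, 32.4 and 20.0 TPM at week 2, with week 3 replicate 4 inside the week 2 range (log2 fold change -1.44, SE 0.50, adjusted p = 0.0577). The fatty acid carrier Fabp5 (0.70) and Cpt1a (0.38), which admits fatty acids to mitochondria, were not called. For fatty acid uptake and oxidation, 3 rose and 1 fell after the length and GC correction (median 0.17), and 3 and 0 without week 2 replicate 2. Counts were 3 and 3 after rescaling, 6 and 4 without week 2 replicate 3, 3 and 0 without week 3 replicates 1 or 3, and 3 and 2 without week 3 replicate 4. Rescaled, Cd36 (-1.60, adjusted p = 0.0335) passed.

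**Figure D3:**
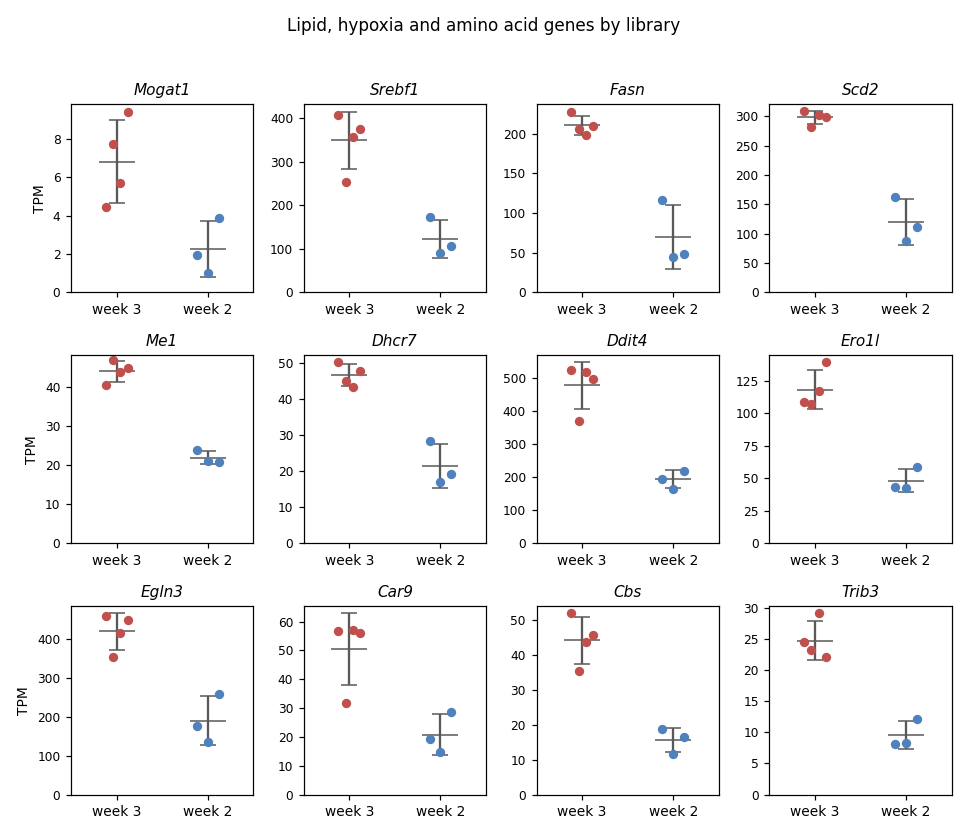
TPM in each of 4 week 3 libraries (red, left) and 3 week 2 libraries (blue, right) for 12 genes of lipid, hypoxia and amino acid metabolism; bars are the mean and SD. In Mogat1 the week 3 libraries sit between 4.46 and 9.37 TPM and the week 2 libraries between 1.02 and 3.87 TPM. All 12 genes shown had passed the threshold, and none overlaps between the weeks. Members of the same lists that were not called are not shown. Over all tested genes, 21.2% had every week 3 library above every week 2 library.

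Of the genes of the hypoxia response, 14 of 22 tested members rose, beside 20.1% of all genes, and 0 fell (median log2 fold change 0.66). Ddit4, an inhibitor of mTORC1, was at 525, 371, 519 and 497 TPM at week 3, against 196, 166 and 221 TPM at week 2 (log2 fold change 1.29, SE 0.15, adjusted p = 0.000511). Ero1l, an endoplasmic reticulum oxidase, stood at 109, 107, 117 and 139.8 TPM at week 3, against 43.8, 42.7 and 58.5 TPM at week 2 (log2 fold change 1.28, SE 0.17, adjusted p = 0.00103). Egln3, an oxygen-sensing prolyl hydroxylase, was at 458, 353, 414 and 449 TPM at week 3, against 176, 135 and 259 TPM at week 2 (log2 fold change 1.18, SE 0.19, adjusted p = 0.00241). Car9, a carbonic anhydrase, was at 56.7, 31.9, 57.2 and 56.1 TPM at week 3, against 19.2, 14.6 and 28.5 TPM at week 2 (log2 fold change 1.25, SE 0.25, adjusted p = 0.00659). All 4 were higher in every week 3 library, and Car9 was lowest in week 3 replicate 2. Further rises were P4ha2 (1.13), Bnip3 (1.01) and Vegfa (0.71), the last an angiogenic factor, and Ndrg1 (0.47) was not called. For the hypoxia response, 12 rose and 0 fell after the length and GC correction (median 0.50), and 6 and 0 without week 2 replicate 2. On leaving out week 2 replicate 2, Vegfa and Bnip3 did not reach the threshold (adjusted p = 0.066 to 0.108). Calls were also lost without week 3 replicate 4 for Vegfa (adjusted p = 0.0603). Vegfa did not pass once length and GC content were corrected for (adjusted p = 0.0776). Vegfa did not pass once rescaled (adjusted p = 0.0577).

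In glycolysis, 14 of 20 tested members rose, beside 20.1% of all genes, and 0 fell (median log2 fold change 0.52). Pfkl, the liver-type phosphofructokinase, was at 107, 97.3, 106 and 113 TPM at week 3, against 73.5, 36.4 and 37.4 TPM at week 2 (log2 fold change 1.17, SE 0.20, adjusted p = 0.00305). Aldoa, an aldolase, was at 448, 425, 472 and 481 TPM at week 3, against 375, 264 and 266 TPM at week 2 (log2 fold change 0.62, SE 0.12, adjusted p = 0.0051). Smaller rises were Slc2a1 (0.82), Eno1 (0.50), Tpi1 (0.51) and Pgk1 (0.35), the first a glucose transporter. The lactate dehydrogenase Ldha (0.23) and the hexokinase Hk2 (0.062) were not called. For glycolysis, 9 rose and 0 fell after the length and GC correction (median 0.30), and 5 and 0 without week 2 replicate 2. Its counts were 9 and 0 after rescaling, and 8 and 0 without week 3 replicates 3 or 4. Leaving out week 2 replicate 2 ended the calls of Slc2a1 and Pgk1 (adjusted p = 0.118 to 0.144). A call also ended without week 2 replicate 3 or week 3 replicates 2, 3 or 4 for Slc2a1, week 3 replicates 3 or 4 for Pgk1 (adjusted p = 0.0573 to 0.0994). Slc2a1 and Eno1 did not pass after the length and GC correction (adjusted p = 0.0533 to 0.0634). Rescaled, Tpi1 and Pgk1 did not pass (adjusted p = 0.0601 to 0.314).

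Promoters of hypoxia genes are shown because members of these lists moved together. The letters ACGTG, core of the hypoxia element, were searched on both strands of the 300 bases from 250 before to 50 after the gene start in RefSeq (GRCm38.p6). They stood in 12 of 16 hypoxia genes with a promoter (75.0%), 13 of 20 of glycolysis (65.0%) and 21.8% of 27025 genes. Of those with the letters, 7 of the 12 and 8 of the 13 rose, beside 14 of 22 (63.6%) and 14 of 20 (70.0%) tested members of the whole lists. The letters are also part of CACGTG, the E-box. A match is no measured binding site. Of the other motifs searched in the same windows, the SREBP element TCACNCCAC stood in 1 of 15 cholesterol synthesis genes (6.67%), 1 of 15 fatty acid synthesis genes (6.67%) and 0 of 8 sterol sensing genes, against 1.44% of all genes; 0 and 1 of these were called. The E-box stood in 3 of 15 fatty acid synthesis genes (20.0%, against 8.09%), and 2 of the 3 rose, beside 14 of 19 tested members of the list. The STAT element TTCNNNGAA was in 8 of 16 interferon-gamma genes (against 9.55% of all), 0 of which were called. The heat shock element (GAA, TTC and GAA, each 2 bases apart) stood in 4 of 15 chaperones (26.7%, against 0.662%), of which 1 was called, and the cAMP element TGACGTCA in 2 of 18 immediate early genes (11.1%, against 2.03%), of which 1 was called. Windows of 120 bases follow, with matches on either strand in capitals.
Ddit4 (chr10:59951888-59952007, minus strand): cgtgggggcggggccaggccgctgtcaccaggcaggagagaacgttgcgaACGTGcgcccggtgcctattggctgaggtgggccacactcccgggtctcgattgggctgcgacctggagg
Egln3 (chr12:54204005-54204124, minus strand): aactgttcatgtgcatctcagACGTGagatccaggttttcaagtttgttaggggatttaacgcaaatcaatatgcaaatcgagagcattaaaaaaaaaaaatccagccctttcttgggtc
Car9 (chr4:43506956-43507075, plus strand): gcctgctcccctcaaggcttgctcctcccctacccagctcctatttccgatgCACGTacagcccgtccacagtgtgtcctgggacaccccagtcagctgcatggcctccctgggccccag
Pgk1 (chrX:106186900-106187019, plus strand): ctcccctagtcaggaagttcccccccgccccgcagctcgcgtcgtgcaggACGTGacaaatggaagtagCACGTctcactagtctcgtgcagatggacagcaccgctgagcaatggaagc

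In the amino acid response, 8 of 25 tested members rose, beside 20.1% of all genes, and 0 fell (median log2 fold change 0.29). Cbs, of the transsulfuration pathway, was at 52.1, 35.4, 43.7 and 45.8 TPM at week 3, against 18.7, 11.8 and 16.6 TPM at week 2 (log2 fold change 1.45, SE 0.16, adjusted p = 0.000464). Trib3, a pseudokinase induced by amino acid shortage, was at 24.5, 23.1, 29.1 and 22.1 TPM at week 3, against 8.18, 8.25 and 12.1 TPM at week 2 (log2 fold change 1.30, SE 0.14, adjusted p = 0.000457), and both were higher in every week 3 library. Also higher were Vldlr (1.26) and Gpt2 (1.12). Asparagine synthetase, Asns (0.099), the serine synthesis enzymes Phgdh (0.16) and Psat1 (0.19) and the cystine transporter Slc7a11 (0.10) were not called. For amino acid response and serine synthesis, 7 rose and 0 fell after the length and GC correction (median 0.17), and 5 and 0 without week 2 replicate 2. Its counts were 13 and 0 without week 2 replicate 1, 5 and 1 without week 2 replicate 3, and 5 and 0 without week 3 replicate 3.

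Stress lists were mixed. In the unfolded protein response, 1 of 22 tested members rose and 1 fell (median log2 fold change 0.10): Xbp1 (0.46), a transcription factor of the response, rose, Hsp90b1 (-0.38) fell, and the chaperone Hspa5 (0.18) was not called. Of heat shock chaperones, 3 of 20 tested members rose, a share near the 20.1% of all genes. Another 3 fell, beside 4.01% of all genes (median log2 fold change 0.15). Hspb1, a small heat shock protein, was at 2538, 1571, 2265 and 2153 TPM at week 3, against 1136, 1079 and 1043 TPM at week 2 (log2 fold change 0.95, SE 0.16, adjusted p = 0.00241), with Hspa1a (0.80) and Hspa1b (0.99) also higher and Hspa4l (-0.91) and Chordc1 (-0.34) lower. Hsph1 (0.20) and Hsp90aa1 (-0.21) were not called. In oxidative stress, 2 of 21 tested members rose and 4 fell, beside 4.01% lower over all genes (median log2 fold change -0.11). Gclm (0.51) and Cat (0.46) were higher, Gpx1 (-0.41) was lower and Nqo1 (0.49), Hmox1 (0.21), Mt1 (-0.24) and Mt2 (-0.94) were not called. For the unfolded protein response, 1 rose and 2 fell after the length and GC correction (median -0.0072), and 0 and 0 without week 2 replicate 2. Such counts were 12 and 1 without week 2 replicate 1, 0 and 4 after rescaling, and 1 and 3 without week 3 replicate 2. For heat shock chaperones, 2 rose and 2 fell after the length and GC correction (median 0.020), and 1 and 0 without week 2 replicate 2. Counts were 8 and 4 without week 2 replicate 1, 2 and 1 without week 2 replicate 3 or week 3 replicate 1, 3 and 1 without week 3 replicate 2, and 1 and 1 without week 3 replicate 3. For oxidative stress, 3 rose and 3 fell after the length and GC correction (median -0.19), and 1 and 0 without week 2 replicate 2. The counts were 4 and 5 without week 2 replicate 1, and 2 and 2 without week 3 replicates 3 or 4. With week 2 replicate 2 left out, Xbp1, Hsp90b1, Hspa1a, Hspa1b, Hspa4l, Chordc1, Cat and Gpx1 no longer passed (adjusted p = 0.061 to 0.165). Further calls ended without week 3 replicates 1, 3 or 4 for Hsp90b1, week 2 replicate 3 or week 3 replicates 1, 3 or 4 for Hspa1a, week 2 replicate 3 or week 3 replicate 3 for Hspa1b, week 2 replicate 3 or week 3 replicates 1, 2 or 3 for Chordc1 (adjusted p = 0.0528 to 0.149). After the length and GC correction Hsp90b1 and Hspa1a did not pass (adjusted p = 0.0913 to 0.125). Xbp1 and Hspa1a did not pass once rescaled (adjusted p = 0.0623 to 0.063). With length and GC content corrected for, Nqo1 (0.66, adjusted p = 0.0251) passed.

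Counts in respiration and translation moved with the week 2 library left out. Of nuclear respiratory chain subunits, 1 of 39 tested members rose and 1 fell (median log2 fold change -0.097): Atp5a1 (0.30) was higher and Sdhb (-0.47) lower. Of mitochondrially encoded genes, 0 of 13 tested members passed in limma, 0 had an unadjusted p under 0.05, and 0 passed after the length and GC correction, 3 without week 2 replicate 1 (median log2 fold change -0.17). Of ribosomal proteins, 0 of 49 tested members rose and 3 fell (median log2 fold change -0.20), Rps12 (-0.50) and Rps3 (-0.40) being among those that fell. Of replication-dependent histones, 0 of 17 tested members passed in limma, 0 had an unadjusted p under 0.05, and 0 passed after the length and GC correction. For nuclear respiratory chain subunits, 6 rose and 2 fell after the length and GC correction (median -0.014), and 0 and 1 without week 2 replicate 2. Both counts were 5 and 17 without week 2 replicate 1, and 0 and 3 after rescaling. For ribosomal proteins, 0 rose and 1 fell after the length and GC correction (median -0.17), and 0 and 0 without week 2 replicate 2. Counts were 0 and 40 without week 2 replicate 1, 0 and 7 after rescaling, 0 and 1 without week 2 replicate 3 or week 3 replicates 1 or 3, and 0 and 0 without week 3 replicate 4. No longer past the threshold without week 2 replicate 2 were Atp5a1, Rps12 and Rps3 (adjusted p = 0.0858 to 0.153). Calls ended too without week 2 replicate 3 or week 3 replicates 1, 2, 3 or 4 for Atp5a1, week 3 replicate 4 for Rps12, week 2 replicate 3 or week 3 replicates 1, 3 or 4 for Rps3 (adjusted p = 0.0501 to 0.0878). Atp5a1 and Rps12 did not pass once length and GC content were corrected for (adjusted p = 0.0688 to 0.848). Rescaled, Atp5a1 did not pass (adjusted p = 0.3).

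Of genes induced by type I interferon, 0 of 33 tested members rose and 13 fell (median log2 fold change -0.75), beside 4.01% lower over all genes. Ifi27l2a was at 22.7, 29.7, 41.7 and 31.4 TPM at week 3, against 131, 131 and 55.9 TPM at week 2 (log2 fold change -1.66, SE 0.36, adjusted p = 0.00877). Ifit1, an RNA-binding antiviral protein, was at 32.8, 29.6, 26.9 and 18.6 TPM at week 3, against 90.9, 128 and 34.0 TPM at week 2 (log2 fold change -1.44, SE 0.36, adjusted p = 0.0159). Usp18, a protease that takes ISG15 off proteins, was at 25.8, 26.6, 27.9 and 19.7 TPM at week 3, against 83.4, 81.9 and 29.3 TPM at week 2 (log2 fold change -1.21, SE 0.30, adjusted p = 0.0162). Week 2 replicate 3 lay close to the week 3 libraries in all 3, and replicates 1 and 2 stood well above. The interferon-induced Herc6 (-0.86) and Eif2ak2 (-0.55) fell too. Irf7 (-1.14), a transcription factor of the response, was not called, and Isg15 was under the filter, at 0.665, 0, 0.546 and 0.155 TPM at week 3, against 1.17, 0.186 and 0.0837 TPM at week 2. For the type I interferon response, 0 rose and 19 fell after the length and GC correction (median -0.87), and 0 and 0 without week 2 replicate 2. Such counts were 0 and 23 after rescaling, 0 and 21 without week 2 replicate 3, and 0 and 6 without week 3 replicate 4. All 13 calls ended without week 2 replicate 2, where the median log2 fold change was -0.70. Of all 14770 tested genes, 126 were lower in that fit, and after rescaling 9.59% of all genes were lower. The members summed to 2209, 1603, 2089.6 and 1485 TPM at week 3, against 3789.5, 3843 and 2074 TPM at week 2. Week 2 replicates 1 and 2 held the highest sums, and their pan-leukocyte sums were 1008 and 253 TPM, the first above every week 3 library and the other inside the week 3 range. Usp18, Ifit1, Ifi27l2a, Eif2ak2 and Herc6 did not pass without week 2 replicate 2 (adjusted p = 0.0514 to 0.0854). With length and GC content corrected for, Irf7 (-1.502, adjusted p = 0.0115) passed. Rescaled, Irf7 (-1.31, adjusted p = 0.0274) passed.

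Promoters of 4 interferon genes are shown for the same reason. The core of the interferon-stimulated response element was searched as GAAA and GAAA with any 2 bases between them. It stood on either strand in 12 of 22 tested genes of the list with a promoter (54.5%), against 3.99% of 27025 genes, tested or not. Of the 12, 7 fell, beside 13 of 33 tested members of the whole list. Capitals mark the matches, read in the direction of the gene.
Ifit1 (chr19:34640735-34640854, plus strand): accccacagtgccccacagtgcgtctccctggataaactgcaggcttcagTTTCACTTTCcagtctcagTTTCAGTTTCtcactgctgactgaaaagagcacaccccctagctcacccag
Ifit3 (chr19:34583323-34583442, plus strand): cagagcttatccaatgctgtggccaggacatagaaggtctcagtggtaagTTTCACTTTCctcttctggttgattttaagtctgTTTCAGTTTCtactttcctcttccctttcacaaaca
Rsad2 (chr12:26456503-26456622, minus strand): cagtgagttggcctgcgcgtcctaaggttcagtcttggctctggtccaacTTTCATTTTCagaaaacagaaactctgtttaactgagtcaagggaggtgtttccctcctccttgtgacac
Oas1a (chr5:120907476-120907595, minus strand): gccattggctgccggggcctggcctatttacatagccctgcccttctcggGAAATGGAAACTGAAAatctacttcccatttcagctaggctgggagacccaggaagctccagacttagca

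**Figure D4:**
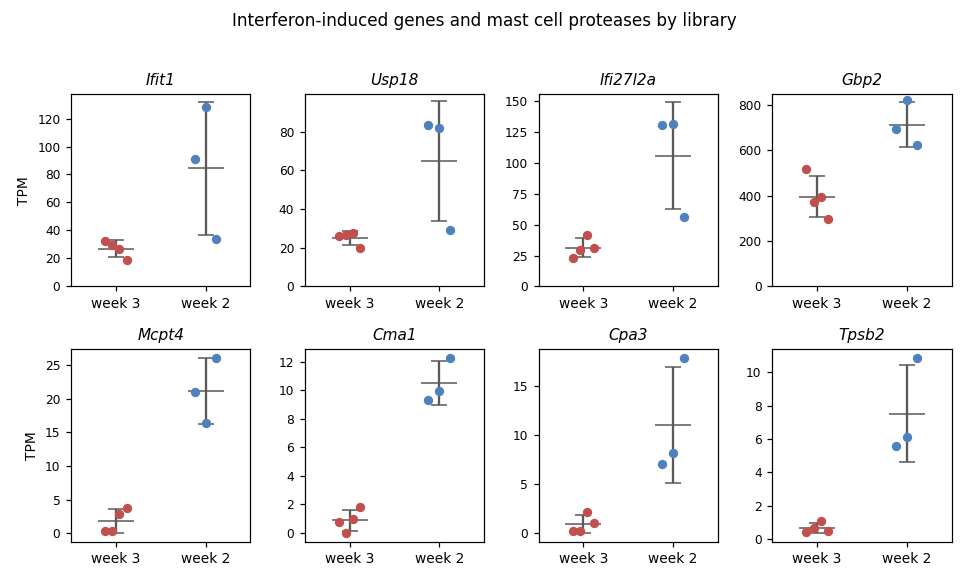
TPM in each of 4 week 3 libraries (red, left) and 3 week 2 libraries (blue, right) for 4 interferon-induced genes and 4 mast cell proteases; bars are the mean and SD. In Ifit1, Usp18 and Ifi27l2a, week 2 replicate 3 lies nearest to week 3. In the 4 proteases every week 2 library lies above every week 3 library, as the choice of the largest falls requires.

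Of interferon-gamma regulators, 0 of 22 tested members rose and 4 fell, beside 4.01% lower over all genes (median log2 fold change -0.37). Gbp2, a guanylate-binding protein, was at 519.8, 372, 393 and 299 TPM at week 3, against 696, 823 and 625 TPM at week 2 (log2 fold change -0.87, SE 0.24, adjusted p = 0.0239), and Socs1 (-1.11), Jak2 (-0.52) and Ido1 (-0.82) were lower too. The factor Irf1 (0.052) and the GTPase Iigp1 (-0.43) were not called. For interferon-gamma induced GTPases and regulators, 0 rose and 4 fell after the length and GC correction (median -0.45), and 0 and 0 without week 2 replicate 2. Such counts were 0 and 2 without week 2 replicate 1, and 0 and 1 without week 3 replicates 3 or 4. Of antigen loading genes, 0 of 15 tested members rose and 1 fell (median log2 fold change -0.074). The call was B2m, the light chain of MHC class I, at 6678, 5740.2, 6873 and 5858 TPM at week 3, against 8888, 11984 and 10231 TPM at week 2 (log2 fold change -0.72, SE 0.16, adjusted p = 0.0116); its corrected log2 fold change was -0.23 (adjusted p = 0.338). The peptide transporter Tap1 (0.29), the immunoproteasome subunits Psmb8 (-0.13) and Psmb9 (-0.27) and the transactivator Nlrc5 (0.20) were not called. For MHC class I loading and immunoproteasome, 0 rose and 0 fell after the length and GC correction (median -0.23), and 0 and 0 without week 2 replicate 2. Such counts were 3 and 3 without week 2 replicate 1, and 0 and 4 after rescaling. Gbp2, Socs1, Jak2, Ido1 and B2m passed with all libraries but not without week 2 replicate 2 (adjusted p = 0.0574 to 0.193). Calls were also lost without week 3 replicates 3 or 4 for Gbp2, week 2 replicate 1 or week 3 replicates 1, 3 or 4 for Socs1 and Jak2, week 2 replicate 1 or week 3 replicates 1 or 2 for Ido1 (adjusted p = 0.0538 to 0.101). The correction for length and GC content ended the calls of Ido1 and B2m (adjusted p = 0.0907 to 0.338).

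Of checkpoint ligands and adenosine enzymes, 3 of 19 tested members rose, a share near the 20.1% of all genes, and 2 fell (median log2 fold change -0.32). The inhibitory ligands Cd200 (0.56) and Cd276 (0.87) rose, and Cd47 (-0.52), which restrains phagocytosis, fell. Cd274, the ligand of PD-1, was at 41.0, 27.8, 34.1 and 29.1 TPM at week 3, against 58.8, 49.1 and 50.4 TPM at week 2, lower in every week 3 library yet not called (log2 fold change -0.67, SE 0.32, adjusted p = 0.15). The adenosine-forming enzyme Nt5e (-0.053) was not called. Of lymphocyte-attracting chemokines, 1 of 15 tested members rose and 1 fell (median log2 fold change -0.37): Cx3cl1 rose (log2 fold change 0.91, SE 0.23, adjusted p = 0.017) and Ccl5 fell, as above. Not called were Cxcl9 (-0.80), Cxcl10 (-0.76), Cxcl16 (-0.80), Ccl20 (0.85), Ccl28 (0.38) and Cxcl12 (-0.37). For checkpoint ligands and adenosine enzymes, 2 rose and 2 fell after the length and GC correction (median -0.31), and 1 and 0 without week 2 replicate 2. List counts were 2 and 4 after rescaling, and 2 and 0 without week 3 replicates 1, 3 or 4. For lymphocyte-attracting chemokines, 2 rose and 2 fell after the length and GC correction (median -0.70), and 0 and 0 without week 2 replicate 2. Counts were 1 and 3 without week 2 replicate 1, 1 and 6 after rescaling, and 2 and 3 without week 3 replicate 1. On leaving out week 2 replicate 2, Cd276, Cd47 and Cx3cl1 did not reach the threshold (adjusted p = 0.06 to 0.0862). A call also ended without week 3 replicates 1, 3 or 4 for Cd47, week 2 replicate 3 for Cx3cl1 (adjusted p = 0.0551 to 0.073). With length and GC content corrected for, Cxcl16 (-0.92, adjusted p = 0.0357) and Ccl20 (1.27, adjusted p = 0.0146) passed. Rescaled, Cxcl10 (-0.93, adjusted p = 0.0407) and Cxcl16 (-0.97, adjusted p = 0.0314) passed.

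Of myeloid chemokines and cytokines, 1 of 23 tested members rose and 1 fell (median log2 fold change -0.18). Tnf was at 193, 91.1, 148 and 182 TPM at week 3, against 64.9, 52.6 and 82.5 TPM at week 2, without overlap (log2 fold change 1.16, SE 0.25, adjusted p = 0.00809), and Il18 fell (log2 fold change -1.01, SE 0.26, adjusted p = 0.0188). Not called were Cxcl1 (-0.21), Cxcl2 (0.067), Ccl2 (-0.38), Csf1 (0.071) and Il1b (-0.70). Of acute phase and iron-binding genes, 6 of 19 tested members rose, beside 20.1% of all genes, and 1 fell (median log2 fold change 0.16). Lbp, which binds bacterial lipopolysaccharide, was at 290.3, 329, 316 and 274 TPM at week 3, against 177, 118 and 139 TPM at week 2 (log2 fold change 1.07, SE 0.13, adjusted p = 0.000719), with Saa1 (1.32), Lcn2 (0.88), Hp (0.68) and Steap4 (0.63) higher as well and Serpina3f (-0.75) lower. The list's Saa3 (-0.46), C3 (-0.54) and Ltf (-0.091) were not called. Among immediate early genes, 5 of 23 tested members rose, a share near the 20.1% of all genes, and 0 fell (median log2 fold change 0.28): Dusp6 (0.56), Ier3 (0.51), Ier2 (0.70) and Fos (0.80) rose and Jun (0.48), Egr1 (0.74) and Atf3 (-0.23) were not called. For myeloid-attracting chemokines and cytokines, 1 rose and 0 fell after the length and GC correction (median -0.0078), and 1 and 0 without week 2 replicate 2. List counts were 1 and 4 after rescaling or without week 3 replicate 2. For acute phase and iron-binding proteins, 4 rose and 1 fell after the length and GC correction (median 0.18), and 3 and 0 without week 2 replicate 2. Counts were 3 and 1 after rescaling, and 3 and 0 without week 3 replicate 3. For immediate early genes, 3 rose and 0 fell after the length and GC correction (median 0.068), and 1 and 0 without week 2 replicate 2. Such counts were 15 and 0 without week 2 replicate 1, 2 and 0 after rescaling or without week 3 replicates 1 or 3, 2 and 1 without week 2 replicate 3, and 1 and 0 without week 3 replicate 4. Leaving out week 2 replicate 2 ended the calls of Il18, Lcn2, Hp, Serpina3f, Steap4, Fos, Ier3 and Ier2 (adjusted p = 0.0626 to 0.112). Calls ended as well without week 3 replicates 1 or 3 for Lcn2, week 3 replicates 1, 3 or 4 for Hp, week 2 replicate 3 or week 3 replicates 3 or 4 for Serpina3f, week 3 replicates 3 or 4 for Steap4, week 2 replicate 3 or week 3 replicates 1, 3 or 4 for Fos and Ier2, week 3 replicate 4 for Ier3 (adjusted p = 0.0519 to 0.139). Il18, Lcn2, Hp and Ier2 did not pass once length and GC content were corrected for (adjusted p = 0.0577 to 0.131). After rescaling Lcn2, Hp, Steap4, Ier3 and Ier2 did not pass (adjusted p = 0.0819 to 0.119).

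Of luminal epithelial genes, 17 of 33 tested members rose, beside 20.1% of all genes, and 2 fell (median log2 fold change 0.59). Esrp1, an epithelial splicing factor, was at 122, 103, 109.5 and 115 TPM at week 3, against 46.0, 40.4 and 62.9 TPM at week 2 (log2 fold change 1.18, SE 0.13, adjusted p = 0.000461). Esrp2 was at 23.8, 25.998, 25.0 and 27.7 TPM at week 3, against 7.52, 9.55 and 13.1 TPM at week 2 (log2 fold change 1.30, SE 0.15, adjusted p = 0.000557). Kit, a receptor of luminal progenitors and of mast cells, was at 40.8, 37.6, 38.7 and 50.1 TPM at week 3, against 24.4, 12.6 and 15.5 TPM at week 2 (log2 fold change 1.25, SE 0.19, adjusted p = 0.00177), and further rises were St14 (0.98), Grhl1 (1.15), Cdh1 (0.87), Elf5 (0.65) and Foxa1 (0.62). The marker genes Epcam (0.60) and Krt8 (0.65) rose too. The luminal factor Gata3 (0.59) and the prolactin receptor Prlr (0.47) were not called. For luminal epithelial identity genes, 12 rose and 2 fell after the length and GC correction (median 0.45), and 10 and 0 without week 2 replicate 2. Both counts were 11 and 2 after rescaling. The calls of Epcam, Krt8, Elf5 and Foxa1 ended without week 2 replicate 2 (adjusted p = 0.0563 to 0.138). Further calls ended without week 3 replicates 2, 3 or 4 for Foxa1 (adjusted p = 0.0565 to 0.0871). Elf5, Foxa1, Epcam and Krt8 did not pass after the length and GC correction (adjusted p = 0.0708 to 0.262). Elf5, Foxa1, Epcam and Krt8 did not pass once rescaled (adjusted p = 0.0545 to 0.104).

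Of milk and secretory genes, 3 of 18 tested members rose, a share near the 20.1% of all genes, and 1 fell (median log2 fold change 0.22). Trf, transferrin, was at 5597, 5444, 5405 and 6006 TPM at week 3, against 2984, 2119.6 and 3464 TPM at week 2 (log2 fold change 1.003, SE 0.16, adjusted p = 0.0022), with Mfge8 (0.89) and Lao1 (1.31) higher. Csn1s1, a casein, was at 0.140, 1.66, 1.80 and 2.69 TPM at week 3, against 16.4, 7.73 and 2.60 TPM at week 2, where week 3 replicate 4 and week 2 replicate 3 overlapped (log2 fold change -1.79, SE 0.53, adjusted p = 0.0324), and Csn2 (-1.88), Csn3 (0.27), Wap (0.22) and Btn1a1 (0.020) were not called. Of keratins, 1 of 17 tested members rose and 2 fell (median log2 fold change -0.10): Krt79 (1.05) was higher, Krt16 (-1.38) and Krt15 (-0.76) lower, and Krt5 (-0.10), Krt6a (-0.28), Krt14 (-0.46) and Sprr1a (-0.75) not called. For milk and secretory differentiation genes, 4 rose and 0 fell after the length and GC correction (median -0.013), and 3 and 0 without week 2 replicate 2. Counts were 6 and 0 without week 2 replicate 1. For keratins and cornified envelope, 1 rose and 4 fell after the length and GC correction (median -0.30), and 1 and 0 without week 2 replicate 2. List counts were 1 and 4 after rescaling, 1 and 0 without week 3 replicates 1 or 3, and 2 and 0 without week 3 replicate 4. With week 2 replicate 2 left out, Csn1s1, Krt16 and Krt15 no longer passed (adjusted p = 0.0579 to 0.108). Calls ended too without week 2 replicate 1 or week 3 replicates 1, 2 or 3 for Csn1s1, week 2 replicate 1 or week 3 replicates 1, 3 or 4 for Krt16, week 2 replicates 1 or 3 or week 3 replicates 1, 3 or 4 for Krt15 (adjusted p = 0.05003 to 0.12). The correction for length and GC content ended the call of Csn1s1 (adjusted p = 0.111). Krt5 (-0.38, adjusted p = 0.0476) and Krt14 (-0.65, adjusted p = 0.0354) passed after the length and GC correction. Csn2 (-1.97, adjusted p = 0.0454), Krt14 (-0.63, adjusted p = 0.0234) and Sprr1a (-0.90, adjusted p = 0.0387) passed after rescaling.

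Among basal and myoepithelial genes, 8 of 16 tested members rose, beside 20.1% of all genes, and 1 fell (median log2 fold change 0.47). Lamb3, a laminin chain of the basement membrane, was at 191, 173, 199 and 195 TPM at week 3, against 89.8, 55.2 and 74.3 TPM at week 2 (log2 fold change 1.39, SE 0.14, adjusted p = 0.000396), and Itga6 (0.91) and Trp63 (0.76) rose too. The contractile genes Acta2 (0.39) and Myh11 (-0.21) were not called. Cnn1 and Tagln were under the filter, at 0.287, 0.378, 0.196 and 1.39 TPM at week 3, against 1.23, 0.401 and 0.241 TPM at week 2, and 0, 0.313, 0 and 0 TPM at week 3, against 0.0466, 0.753 and 0.0399 TPM at week 2. For basal and myoepithelial genes, 3 rose and 3 fell after the length and GC correction (median 0.31), and 4 and 0 without week 2 replicate 2. These counts were 4 and 2 after rescaling, and 5 and 1 without week 3 replicates 3 or 4. No longer past the threshold without week 2 replicate 2 was Trp63 (adjusted p = 0.0726). After the length and GC correction Trp63 did not pass (adjusted p = 0.0508). After rescaling Trp63 did not pass (adjusted p = 0.0551).

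Of genes of mesenchymal transition, 4 of 26 tested members rose, a share near the 20.1% of all genes, and 2 fell (median log2 fold change -0.0019). Ctgf and Cyr61 are matricellular proteins induced by YAP and TGF-beta. Ctgf was at 776, 623, 941 and 817 TPM at week 3, against 277, 214 and 234 TPM at week 2 (log2 fold change 1.70, SE 0.15, adjusted p = 0.000283). Cyr61 was at 2869, 1894, 2733 and 2329.8 TPM at week 3, against 1266, 911 and 1016 TPM at week 2 (log2 fold change 1.20, SE 0.16, adjusted p = 0.000896). The ligand Tgfb2 (1.29) and the transcription factor Snai1 (1.13) rose. S100a4, a calcium-binding protein of fibroblasts and motile cells, was at 287, 442, 406 and 262 TPM at week 3, against 1133, 1846 and 704 TPM at week 2 (log2 fold change -1.74, SE 0.29, adjusted p = 0.00255). The intermediate filament Vim (-1.003), fibronectin, Fn1 (1.38), and Cdh2 (-0.21), Zeb1 (-0.69) and Zeb2 (-0.47) were not called. For mesenchymal transition regulators and markers, 4 rose and 5 fell after the length and GC correction (median -0.21), and 3 and 1 without week 2 replicate 2. List counts were 8 and 1 without week 2 replicate 1, 4 and 5 after rescaling, 4 and 6 without week 2 replicate 3, and 4 and 4 without week 3 replicate 2. Snai1 did not pass without week 2 replicate 2 (adjusted p = 0.0685). Vim (-1.04, adjusted p = 0.0442) and Zeb1 (-0.87, adjusted p = 0.0427) passed after the length and GC correction. Vim (-1.18, adjusted p = 0.0245) and Zeb2 (-0.64, adjusted p = 0.0414) passed after rescaling.

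Of collagens and proteoglycans, 12 of 32 tested members rose, beside 20.1% of all genes, and 1 fell (median log2 fold change 0.95). Col11a1 was at 127, 144, 141 and 137 TPM at week 3, against 59.9, 30.1 and 42.2 TPM at week 2 (log2 fold change 1.67, SE 0.18, adjusted p = 0.000464). Col9a1 was at 181, 168, 180.2 and 186 TPM at week 3, against 73.9, 66.1 and 96.2 TPM at week 2 (log2 fold change 1.19, SE 0.12, adjusted p = 0.000396), both without overlap. Also higher were the basement membrane and hemidesmosome collagens Col4a1 (1.63) and Col17a1 (0.96). Dcn, a fibroblast proteoglycan, fell (log2 fold change -2.17, SE 0.54, adjusted p = 0.0155), and the fibrillar collagens Col1a1 (1.33) and Col3a1 (-0.31) were not called. For collagens and matrix proteoglycans, 9 rose and 1 fell after the length and GC correction (median 0.42), and 5 and 0 without week 2 replicate 2. List counts were 20 and 1 without week 2 replicate 1, 7 and 1 without week 2 replicate 3 or week 3 replicate 4, and 7 and 2 without week 3 replicate 2. Of metalloproteinases, 4 of 21 tested members rose, a share near the 20.1% of all genes, and 0 fell (median log2 fold change 0.27): Mmp13 (1.24), Mmp14 (1.10), Mmp15 (0.92) and Adamts1 (0.76) rose and Mmp2 (0.12), Mmp3 (-0.29), Mmp9 (0.47) and Timp1 (-0.51) were not called. For metalloproteinases and inhibitors, 3 rose and 0 fell after the length and GC correction (median 0.12), and 0 and 0 without week 2 replicate 2. Such counts were 7 and 0 without week 2 replicate 1, 1 and 1 after rescaling or without week 2 replicate 3, 2 and 0 without week 3 replicate 1, 0 and 0 without week 3 replicates 2 or 3, and 1 and 0 without week 3 replicate 4. Col4a1, Col17a1, Dcn, Mmp13, Mmp14, Mmp15 and Adamts1 passed with all libraries but not without week 2 replicate 2 (adjusted p = 0.0659 to 0.173). A call also ended without week 2 replicate 3 or week 3 replicates 2, 3 or 4 for Col4a1, week 2 replicate 1 or week 3 replicates 1, 2, 3 or 4 for Mmp13, week 2 replicate 3 or week 3 replicates 2 or 3 for Mmp14, week 2 replicate 3 or week 3 replicates 1, 2, 3 or 4 for Mmp15 and Adamts1 (adjusted p = 0.0524 to 0.145). Col4a1, Col17a1, Mmp15 and Adamts1 did not pass after the length and GC correction (adjusted p = 0.053 to 0.12). Rescaled, Mmp13, Mmp15 and Adamts1 did not pass (adjusted p = 0.0511 to 0.0753).

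Of EGF family ligands and receptors, 6 of 16 tested members rose, beside 20.1% of all genes, and 1 fell (median log2 fold change 0.37). Beside Tgfa these were Spry1, an inhibitor of receptor signalling, at 140.2, 139, 157 and 153 TPM at week 3, against 64.9, 44.8 and 41.5 TPM at week 2 (log2 fold change 1.56, SE 0.16, adjusted p = 0.000447), Spry4 (0.84), Nrg2, and the receptors Erbb2 (1.14) and Erbb3 (0.83). Btc, a ligand, fell (log2 fold change -1.20, SE 0.29, adjusted p = 0.0149), and Areg (-0.15), Ereg (0.97), Hbegf (-0.38) and Egfr (0.47) were not called. For EGF family ligands and ERBB receptors, 6 rose and 1 fell after the length and GC correction (median 0.32), and 6 and 0 without week 2 replicate 2. On leaving out week 2 replicate 2, Btc did not reach the threshold (adjusted p = 0.0777).

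In the Notch, Wnt and hedgehog list, 17 of 31 tested members rose, beside 20.1% of all genes, and 0 fell (median log2 fold change 0.50). Notch1 was at 54.4, 49.1, 55.2 and 56.0 TPM at week 3, against 33.2, 12.3 and 13.9 TPM at week 2 (log2 fold change 1.53, SE 0.26, adjusted p = 0.00272). Wif1, a secreted Wnt inhibitor, was at 94.6, 75.4, 84.7 and 92.5 TPM at week 3, against 32.7, 22.6 and 36.5 TPM at week 2 (log2 fold change 1.496, SE 0.18, adjusted p = 0.000587). The Wnt antagonist Sfrp1 (0.94), the receptor Lgr6 (1.38) and the Notch target Hes1 (0.45) rose, and Lef1 (0.44) and Axin2 (0.39) were not called. For the Notch, Wnt and hedgehog pathway, 11 rose and 1 fell after the length and GC correction (median 0.33), and 10 and 0 without week 2 replicate 2. These counts were 11 and 1 after rescaling, and 11 and 2 without week 2 replicate 3. In the TGF-beta and BMP list, 6 of 24 tested members rose, a share near the 20.1% of all genes, and 0 fell (median log2 fold change 0.23). Inhbb, an activin subunit, was at 102, 76.5, 82.7 and 107 TPM at week 3, against 40.7, 27.0 and 27.8 TPM at week 2 (log2 fold change 1.51, SE 0.17, adjusted p = 0.000475), with Smad6 (1.13) and Bmpr2 (0.47) higher and Smad3 (0.25), Smad7 (-0.021), Id1 (-0.34) and Id3 (-0.53) not called. For the TGF-beta and BMP pathway, 3 rose and 1 fell after the length and GC correction (median 0.044), and 3 and 0 without week 2 replicate 2. These counts were 10 and 0 without week 2 replicate 1, and 3 and 1 without week 2 replicate 3. Leaving out week 2 replicate 2 ended the call of Hes1 (adjusted p = 0.069). Further calls ended without week 2 replicate 3 or week 3 replicates 1, 3 or 4 for Hes1 (adjusted p = 0.0699 to 0.106). Hes1 did not pass once rescaled (adjusted p = 0.12). With length and GC content corrected for, Smad7 (-0.50, adjusted p = 0.0449) passed. Rescaled, Id1 (-0.51, adjusted p = 0.0227) passed.

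Cell cycle counts likewise moved with the library left out. In S phase, 1 of 22 tested members rose and 1 fell (median log2 fold change 0.18): Uhrf1 (0.74) was higher, Gins2 (-0.60) lower and Mcm2 (0.44), Pcna (-0.32) and Ccne1 (0.18) not called. In G2 and M phase, 4 of 24 tested members rose, a share near the 20.1% of all genes, and 0 fell (median log2 fold change 0.16): Bub1b (0.51), Cdc20 (0.49) and Plk1 (0.83) rose, while Mki67 (0.24), Top2a (-0.10) and Ccnb1 (-0.088) were not called. Of cyclins and inhibitors, 2 of 16 tested members rose and 0 fell (median log2 fold change 0.11). Cdkn2b, which inhibits CDK4 and CDK6, was at 16.5, 14.2, 13.9 and 15.5 TPM at week 3, against 6.74, 4.39 and 5.14 TPM at week 2 (log2 fold change 1.33, SE 0.23, adjusted p = 0.00341), Cdkn2a (0.68) rose, and Ccnd1 (0.17), Cdkn1a (-0.44) and Cdkn1b (0.28) were not called. For S phase, 1 rose and 1 fell after the length and GC correction (median 0.017), and 0 and 0 without week 2 replicate 2. Its counts were 10 and 2 without week 2 replicate 1, and 1 and 4 after rescaling. For G2 and M phase, 0 rose and 0 fell after the length and GC correction (median 0.075), and 0 and 0 without week 2 replicate 2. Counts were 0 and 1 after rescaling, 0 and 0 without week 3 replicates 1 or 3, and 2 and 0 without week 3 replicate 4. For cyclins and inhibitors, 2 rose and 2 fell after the length and GC correction (median -0.14), and 1 and 0 without week 2 replicate 2. Such counts were 6 and 0 without week 2 replicate 1. The calls of Gins2, Uhrf1, Bub1b, Cdc20, Plk1 and Cdkn2a ended without week 2 replicate 2 (adjusted p = 0.0931 to 0.138). Calls ended too without week 2 replicate 3 or week 3 replicates 1, 3 or 4 for Uhrf1 and Plk1, week 3 replicates 1 or 3 for Bub1b, week 2 replicate 3 or week 3 replicates 1 or 3 for Cdc20, week 2 replicate 1 or week 3 replicates 1, 2, 3 or 4 for Cdkn2a (adjusted p = 0.0521 to 0.13). Bub1b, Cdc20, Plk1 and Cdkn2a did not pass once length and GC content were corrected for (adjusted p = 0.0554 to 0.216). Rescaled, Bub1b, Cdc20, Plk1 and Cdkn2a did not pass (adjusted p = 0.054 to 0.0986). Pcna (-0.49, adjusted p = 0.0329) passed after rescaling.

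Of targets of p53, 0 of 18 tested members rose and 4 fell, beside 4.01% lower over all genes (median log2 fold change -0.12). Those that fell were Mdm2 (-0.84), Ccng1 (-0.33), Eda2r (-1.35) and Bax (-0.39). Of the BCL2 family and its partners, 4 of 23 tested members rose, a share near the 20.1% of all genes. Another 4 fell, beside 4.01% of all genes (median log2 fold change -0.22). Birc2, an inhibitor of apoptosis, was at 42.6, 37.4, 41.0 and 42.2 TPM at week 3, against 59.5, 65.1 and 60.9 TPM at week 2 (log2 fold change -0.59, SE 0.083, adjusted p = 0.0011), and Casp8, an initiator caspase, fell too (log2 fold change -0.45, SE 0.097, adjusted p = 0.00873). The survival factor Bcl2l1 (0.63) rose, and Bcl2 (0.12) and Mcl1 (-0.15) were not called. Of clock genes, 4 of 17 tested members rose, a share near the 20.1% of all genes, and 0 fell (median log2 fold change 0.078), with Per1 (1.08), Tef (0.76) and Ciart (0.55) among those that rose and Arntl (0.018), Per2 (0.37), Nr1d1 (-0.036) and Dbp (0.15) not called. For p53 targets, 0 rose and 4 fell after the length and GC correction (median -0.24), and 0 and 0 without week 2 replicate 2. These counts were 2 and 5 without week 2 replicate 1. For the cell death BCL2 family, 0 rose and 5 fell after the length and GC correction (median -0.26), and 0 and 3 without week 2 replicate 2. Such counts were 2 and 6 after rescaling, 1 and 4 without week 2 replicate 3 or week 3 replicate 1, 0 and 3 without week 3 replicate 3, and 2 and 4 without week 3 replicate 4. For the circadian clock, 2 rose and 0 fell after the length and GC correction (median -0.092), and 1 and 0 without week 2 replicate 2. Both counts were 7 and 0 without week 2 replicate 1, and 2 and 0 without week 2 replicate 3 or week 3 replicates 3 or 4. With week 2 replicate 2 left out, Per1, Tef, Ciart, Mdm2, Ccng1, Eda2r, Bax and Bcl2l1 no longer passed (adjusted p = 0.0544 to 0.123). Calls also ended on leaving out week 2 replicate 3 or week 3 replicates 3 or 4 for Per1, week 2 replicate 3 or week 3 replicates 1, 3 or 4 for Ciart, week 2 replicate 3 or week 3 replicates 1 or 3 for Bcl2l1 (adjusted p = 0.0535 to 0.107). Bcl2l1, Per1 and Ciart did not pass after the length and GC correction (adjusted p = 0.0537 to 0.0984). After rescaling Ciart did not pass (adjusted p = 0.0928).

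Of chromatin-modifying enzymes, 19 of 35 tested members rose, beside 20.1% of all genes, and 1 fell (median log2 fold change 0.56). Kdm5b, a histone demethylase, was at 33.9, 36.6, 35.7 and 37.3 TPM at week 3, against 24.8, 14.6 and 14.8 TPM at week 2 (log2 fold change 0.99, SE 0.16, adjusted p = 0.0021). Also higher were the corepressor Ncor1 (0.61), the histone methyltransferases Kmt2c (0.63) and Kmt2d (1.04), the remodelling subunit Arid1a (0.76) and the acetyltransferase Ep300 (0.77). For chromatin-modifying enzymes, 10 rose and 2 fell after the length and GC correction (median 0.18), and 8 and 0 without week 2 replicate 2. The counts were 11 and 1 without week 2 replicate 3, 12 and 0 without week 3 replicate 1, and 10 and 0 without week 3 replicates 3 or 4. The corrected log2 fold change of Kmt2d was 0.34 (adjusted p = 0.064) and that of Kdm5b 0.69 (adjusted p = 0.00139). No longer past the threshold without week 2 replicate 2 were Arid1a and Ep300 (adjusted p = 0.13 to 0.148). Calls were also lost without week 2 replicate 3 or week 3 replicates 1, 2, 3 or 4 for Arid1a, week 2 replicate 3 or week 3 replicates 2, 3 or 4 for Ep300 (adjusted p = 0.0599 to 0.122). The correction for length and GC content ended the calls of Kmt2d and Arid1a (adjusted p = 0.064 to 0.209).

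**Figure D5:**
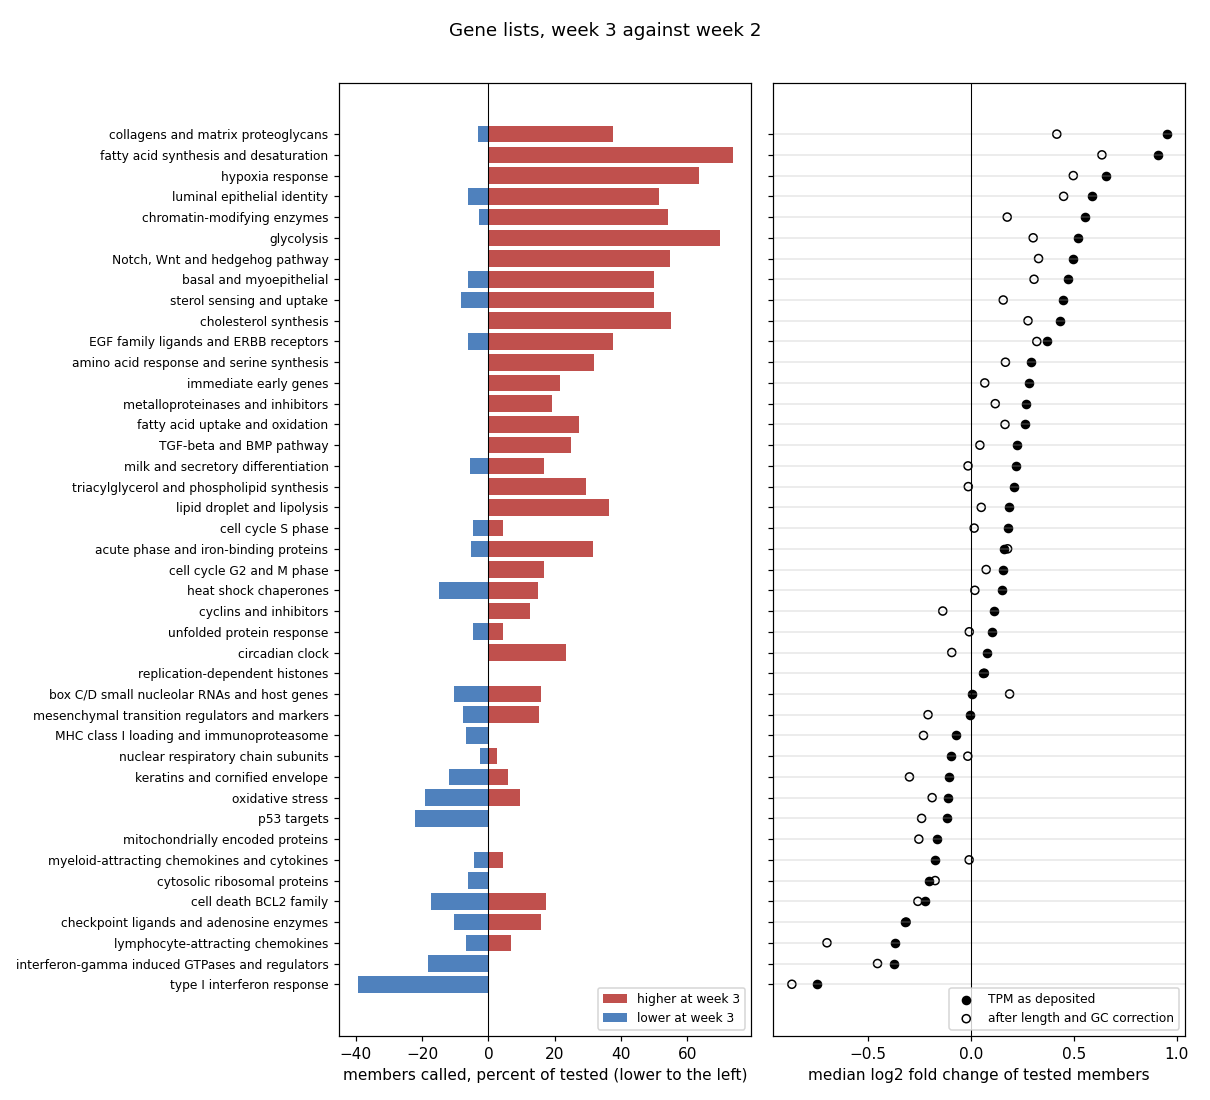
Gene lists with at least 10 tested members: percent of members called higher (red, right) or lower (blue, left) at week 3 against week 2, and the median log2 fold change of members as deposited (filled) and after the length and GC correction (open). Fatty acid synthesis and collagens have medians of 0.91 and 0.95 as deposited and 0.64 and 0.42 after correction, and type I interferon genes -0.75 and -0.87. Over all tested genes, 20.1% were called higher and 4.01% lower.

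Of the mast cell markers, 1 of 12 tested members rose and 6 fell, beside 4.01% lower over all genes (median log2 fold change -1.21). The member that rose was Kit, which luminal cells share. The summed level of the list, most of it Il1rl1 and Kit, was 133, 207, 169 and 143 TPM at week 3, against 532, 533 and 268 TPM at week 2. Within week 2 this sum was lowest in replicate 3, where the 4 proteases that follow were highest. Mcpt4, a chymase, was at 0.406, 0.301, 2.81 and 3.79 TPM at week 3, against 21.0, 16.3 and 26.03 TPM at week 2 (log2 fold change -3.18, SE 0.43, adjusted p = 0.00103). Cma1, another chymase, was at 0.738, 0, 0.947 and 1.83 TPM at week 3, against 9.29, 9.92 and 12.3 TPM at week 2 (log2 fold change -2.70, SE 0.29, adjusted p = 0.000457). Cpa3, a carboxypeptidase, was at 0.204, 0.201, 2.09 and 1.03 TPM at week 3, against 7.03, 8.20 and 17.9 TPM at week 2 (log2 fold change -2.69, SE 0.38, adjusted p = 0.0012). The tryptase Tpsb2 was at 0.435, 0.687, 1.07 and 0.507 TPM at week 3, against 5.57, 6.14 and 10.9 TPM at week 2 (log2 fold change -2.31, SE 0.24, adjusted p = 0.000423). Every week 2 library lay above every week 3 library in all 4, as the choice of the largest falls requires. The tryptase Tpsab1 (-1.73) and Il1rl1 (-1.84) fell too, and Il1rl1, the receptor of interleukin 33, was at 65.7, 148, 96.6 and 57.5 TPM at week 3, against 427, 453 and 152 TPM at week 2. The IgE receptor subunits were under the filter, Fcer1a at 0, 0, 0 and 0 TPM at week 3, against 0.287, 0 and 1.23 TPM at week 2, and Ms4a2 at 0, 0, 0.214 and 0 TPM at week 3, against 0.256, 0.559 and 0.723 TPM at week 2. Week 4 levels were 0.363 ± 0.261 TPM for Mcpt4, 0.124 ± 0.0831 TPM for Cma1, 0.207 ± 0.295 TPM for Cpa3 and 0.151 ± 0.175 TPM for Tpsb2. For mast cell markers, 1 rose and 7 fell after the length and GC correction (median -1.39), and 1 and 5 without week 2 replicate 2. Il1rl1 did not pass without week 2 replicate 2 (adjusted p = 0.0697).

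Markers of other leukocytes spread widely at week 2. Macrophage and monocyte markers summed to 1032, 1114, 1803 and 2159 TPM at week 3, against 4019.6, 913 and 2916 TPM at week 2, and 2 of 20 tested members rose and 0 fell (median log2 fold change -0.049); Mertk (1.09) was among those that rose, and Adgre1 (-0.46), Csf1r (0.15), Cd68 (0.10), C1qa (-0.52) and Lyz2 (-0.98) were not called. T cell markers summed to 82.1, 59.8, 103 and 144 TPM at week 3, against 416, 115 and 144 TPM at week 2, and 0 of 18 tested members passed in limma, 4 had an unadjusted p under 0.05, and 1 passed after the length and GC correction, 1 after rescaling; Cd3d (-1.23), Cd3e (-0.63), Cd8a (-0.84), Cd4 (-0.95) and Lck (-0.71) were not called. B and plasma cell markers summed to 209, 218, 233 and 214 TPM at week 3, against 512, 159 and 142 TPM at week 2. Of 11 tested, Sdc1 (0.60), also an epithelial proteoglycan, rose, Fcrla (-1.52) fell, and Cd79a (-1.74), Cd79b (-1.66) and Ms4a1 (-1.56) were not called. For B and plasma cell markers, 0 rose and 3 fell after the length and GC correction (median -1.34), and 0 and 0 without week 2 replicate 2. List counts were 1 and 4 after rescaling, and 0 and 5 without week 2 replicate 3. Week 2 replicate 1 was the highest library in all 3 sums. Ptprc, the leukocyte common antigen, was at 19.7, 13.2, 29.2 and 41.6 TPM at week 3, against 98.1, 27.4 and 42.2 TPM at week 2 (log2 fold change -0.997, SE 0.59, adjusted p = 0.242), and of pan-leukocyte markers, 0 of 10 tested members passed in limma, 0 had an unadjusted p under 0.05, and 0 passed after the length and GC correction. For macrophage and monocyte markers, 2 rose and 0 fell after the length and GC correction (median -0.29), and 1 and 0 without week 2 replicate 2. Sdc1 and Fcrla passed with all libraries but not without week 2 replicate 2 (adjusted p = 0.0804 to 0.0846). Calls ended as well without week 2 replicate 3 for Sdc1, week 2 replicate 1 or week 3 replicates 1 or 2 for Fcrla (adjusted p = 0.0549 to 0.0703). Sdc1 did not pass once length and GC content were corrected for (adjusted p = 0.0628). Cd79a (-1.89, adjusted p = 0.0437), Cd79b (-1.80, adjusted p = 0.0496) and Ms4a1 (-1.71, adjusted p = 0.0401) passed after rescaling.

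Of neutrophil markers, 3 of 7 tested members rose and 0 fell (median log2 fold change 0.45), those being S100a8 (1.13), S100a9 (1.47) and Camp (0.85). Of dendritic cell markers, 0 of 12 tested members rose and 1 fell (median log2 fold change -0.53); Siglech fell (log2 fold change -1.22, SE 0.24, adjusted p = 0.00536), Ccr7 (-2.21) was not called and Flt3 was under the filter, at 0.473, 0.483, 0.694 and 1.06 TPM at week 3, against 6.52, 0.649 and 0.883 TPM at week 2. Of NK cell markers, 0 of 8 tested members rose and 1 fell (median log2 fold change -0.43): Klra4 fell (log2 fold change -1.51, SE 0.34, adjusted p = 0.01) and Ncr1 (-0.031) was not called. The 1 tested eosinophil and basophil marker did not pass, nor after the length and GC correction. For neutrophil markers, 3 rose and 0 fell after the length and GC correction (median 0.58), and 0 and 0 without week 2 replicate 2. Such counts were 1 and 0 without week 3 replicate 4. For dendritic cell markers, 0 rose and 3 fell after the length and GC correction (median -0.59), and 0 and 1 without week 2 replicate 2. Both counts were 3 and 1 without week 2 replicate 1, 0 and 5 after rescaling, and 0 and 3 without week 2 replicate 3 or week 3 replicate 4. For NK cell markers, 0 rose and 0 fell after the length and GC correction (median -0.45), and 0 and 0 without week 2 replicate 2. Without week 2 replicate 2, S100a8, S100a9, Camp and Klra4 did not pass (adjusted p = 0.0586 to 0.155). Further calls ended without week 2 replicate 1 or week 3 replicates 1, 2, 3 or 4 for S100a8, week 3 replicate 4 for S100a9 (adjusted p = 0.0622 to 0.113). Klra4 did not pass after the length and GC correction (adjusted p = 0.0604), nor S100a8 rescaled (adjusted p = 0.0981). Ccr7 passed after that correction (-2.34, adjusted p = 0.0373) and rescaled (-2.38, adjusted p = 0.034).

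Stromal markers were mixed. Of fibroblast markers, 0 of 18 tested members rose and 4 fell, beside 4.01% lower over all genes (median log2 fold change -0.71). Dpt (-1.97) and Cd34 (-1.26) fell and Pdgfra (-0.048) and Pdgfrb (1.24) were not called. Of endothelial markers, 2 of 19 tested members rose and 0 fell (median log2 fold change 0.51): Flt1 (0.99) and Plvap (0.98) rose and Pecam1 (0.14), Cdh5 (0.25) and Kdr (0.60) were not called. Of pericyte and smooth muscle markers, 2 of 12 tested members rose, a share near the 20.1% of all genes, and 0 fell (median log2 fold change 0.61): Cspg4 (1.14) and Mcam (0.97) rose and Rgs5 (-0.074) was not called. Of lymphatic endothelial markers, 1 of 4 tested members rose, a share near the 20.1% of all genes, and 0 fell (median log2 fold change 0.16): Flt4 (1.34) rose, Lyve1 (0.025) was not called and Prox1 was under the filter, at 0.0950, 1.01, 0.268 and 0.304 TPM at week 3, against 0.593, 0.390 and 0.172 TPM at week 2. Summed endothelial markers were 364, 892, 613 and 724 TPM at week 3, against 1241, 828 and 379 TPM at week 2, with overlap between the weeks. For fibroblast markers, 0 rose and 3 fell after the length and GC correction (median -0.88), and 0 and 0 without week 2 replicate 2. Its counts were 3 and 1 without week 2 replicate 1, and 0 and 1 without week 3 replicates 1, 3 or 4. For endothelial markers, 1 rose and 0 fell after the length and GC correction (median 0.25), and 1 and 0 without week 2 replicate 2. Such counts were 4 and 0 without week 2 replicate 1 or week 3 replicate 1. For pericyte and smooth muscle markers, 0 rose and 0 fell after the length and GC correction (median 0.44), and 0 and 0 without week 2 replicate 2. List counts were 4 and 0 without week 2 replicate 1, and 0 and 0 without week 2 replicate 3 or week 3 replicate 4. For lymphatic endothelial markers, 1 rose and 0 fell after the length and GC correction (median 0.18), and 1 and 0 without week 2 replicate 2. Leaving out week 2 replicate 2 ended the calls of Dpt, Cd34, Cspg4, Mcam and Plvap (adjusted p = 0.0826 to 0.18). Calls ended too without week 2 replicate 1 or week 3 replicates 1, 3 or 4 for Dpt and Cd34, week 2 replicate 3 or week 3 replicate 4 for Cspg4, week 2 replicate 3 or week 3 replicates 2 or 4 for Mcam and Plvap (adjusted p = 0.057 to 0.12). The correction for length and GC content ended the calls of Cd34, Plvap, Cspg4 and Mcam (adjusted p = 0.0633 to 0.224). Rescaled, Plvap and Mcam did not pass (adjusted p = 0.052 to 0.0636).

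Of adipocyte markers, 0 of 3 tested members passed in limma, 2 had an unadjusted p under 0.05, and 0 passed after the length and GC correction, 1 without week 2 replicate 1, with Adipoq at 0.163, 0.161, 0.419 and 0 TPM at week 3, against 0.1199, 0.399 and 0.719 TPM at week 2, and Plin1 at 0.292, 0, 0 and 0 TPM at week 3, against 0.501, 0 and 0.123 TPM at week 2. Of skeletal muscle markers, 1 of 7 tested members rose, a share near the 20.1% of all genes, and 0 fell (median log2 fold change 0.23): Mb (0.96) rose, Acta1 (0.24) was not called and Ckm was under the filter, at 0.497, 1.54, 0 and 0 TPM at week 3, against 0.157, 0.596 and 0.0447 TPM at week 2. Of Schwann cell and nerve markers, 1 of 8 tested members rose and 0 fell (median log2 fold change -0.026), the call being Erbb3, with Sox10 (-0.47) not called. Of erythroid and platelet markers, 0 of 3 tested members passed in limma, 0 had an unadjusted p under 0.05, and 1 passed after the length and GC correction; Alas2 (0.26) was not called. For skeletal muscle markers, 0 rose and 0 fell after the length and GC correction (median 0.097), and 0 and 0 without week 2 replicate 2. For Schwann cell and nerve markers, 1 rose and 1 fell after the length and GC correction (median -0.15), and 1 and 0 without week 2 replicate 2. Such counts were 3 and 0 without week 2 replicate 1. The call of Mb ended without week 2 replicate 2 (adjusted p = 0.181). Calls also ended on leaving out week 2 replicate 1 or week 3 replicates 1, 2, 3 or 4 for Mb (adjusted p = 0.0664 to 0.09). After the length and GC correction Mb did not pass (adjusted p = 0.0616). After rescaling Mb did not pass (adjusted p = 0.0906). With length and GC content corrected for, Sox10 (-0.90, adjusted p = 0.0399) passed.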

How the data were processed

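RNA-seq values of tumor cells from 4 week 3, 3 week 2 and 4 week 4 libraries were analysed as the TPM that the authors deposited in 1 table. Per the submitters' processing notes, FastQC, Trim Galore, HISAT2 and the mm10 genome were used; the read counter and annotation are not given in the sources used here. TPM keep no read depth, so no counting error could be derived. Library groups and numbers come from the labels. Of 33681 rows, 27 named as a date were left out; they held at most 0.159% of TPM. The table had 0 columns of no sample.

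The 14770 genes that reached 1 TPM in 3 or more of the 11 libraries were tested on log2(TPM + 1) with limma 3.58.1 (lmFit and eBayes with trend, R 4.3.3), with all 3 weeks in 1 fit and Benjamini-Hochberg adjustment over all tested genes; the threshold was an adjusted p of 0.05. Fold changes are week 3 over week 2 on that scale. The script was tested on simulated data. Alternatives were pseudocounts of 0.1 and 5, other filters, median-of-ratios and quantile scaling, TPM without mitochondrially encoded genes, weeks 2 and 3 alone, array weights, the replicate number as a block, and leaving out each library. A correction of each library for transcript length and GC content (splines on the longest GENCODE M21 transcript) was added after seeing the data. Promoter sequences are from RefSeq GRCm38.p6. Tables and figures used Python 3.11.15, pandas 2.3.3, numpy 2.4.6 and matplotlib 3.10.9.

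Genes named are the 15 largest rises and 15 largest falls among genes past the threshold whose weeks do not overlap and whose higher mean is at least 5 TPM, clones and pseudogenes left out; the key members of each of 60 gene lists, whatever their value; up to 3 further members of each list with the smallest adjusted p past the threshold; and Mogat1. Some genes that this rule names are not reported here. Genes under the filter have levels and no test. Members and lists were chosen with earlier results of these data known, and list counts are a description.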

Additional observations from a re-analysis of the deposited data

Results flagged for a closer look

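In groups of 4 libraries, 21 of 387 tested sets of values held 1 library whose gap to the nearest of the others, as a share of the whole range, passed Dixon's limit at the 95% level; chance gives about 1 in 20. Week 3 replicate 1 was the highest of its group for Pnpla2 (64.1 TPM, the others 51.1 to 52.4 TPM). In week 3 replicate 1 alone of its group was Plin1 (0.292 TPM) above 0. Week 3 replicate 1 was the lowest of its group for Zeb2 (12.04 TPM, the others 17.1 to 17.4 TPM) and Bmpr2 (39.3 TPM, the others 48.2 to 49.5 TPM). Week 3 replicate 2 was the highest of its group for Hmgcs1 (89.8 TPM, the others 77.9 to 79.1 TPM), Hspa4l (24.4 TPM, the others 14.8 to 16.1 TPM), Mdm2 (77.8 TPM, the others 46.1 to 48.7 TPM), Acta1 (11.4 TPM, the others 0.596 to 1.02 TPM), summed lymphatic endothelial markers (164 TPM, the others 128 to 132 TPM) and summed skeletal muscle markers (51.8 TPM, the others 25.8 to 28.1 TPM). In week 3 replicate 2 alone of its group were Mir99a (1.53 TPM) and Tagln (0.313 TPM) above 0. Week 3 replicate 2 was the lowest of its group for Car9 (31.9 TPM, the others 56.1 to 57.2 TPM). In week 3 replicate 3 alone of its group was Ms4a2 (0.214 TPM) above 0. Week 3 replicate 4 was the highest of its group for Ltf (11.8 TPM, the others 1.51 to 2.93 TPM), Myh11 (6.76 TPM, the others 1.62 to 2.00 TPM) and Cnn1 (1.39 TPM, the others 0.196 to 0.378 TPM). At week 4, 1 library alone was above 0 for Prl2c2 (0.181 TPM, replicate 2), Angptl7 (0.185 TPM, replicate 3) and Nppb (0.195 TPM, replicate 4). Cma1 was at 0 TPM in week 4 replicate 4, against 0.159 to 0.176 TPM in the others. Causes were not tested.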

How the results depend on the processing

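Adjusted p-values rested most on week 2 replicate 2. Leaving out 1 library at a time gave 1382 to 5762 genes past the threshold, 1256 to 4725 higher and 126 to 1037 lower, with a median log2 fold change of all genes of 0.10 to 0.19 and a log2 fold change of Mogat1 of 1.01 to 1.64, past the threshold each time. Mogat1 was called under all other settings too; its log2 fold change was 0.70 with a pseudocount of 5. A fit of weeks 2 and 3 alone called 1591 genes (1378 higher, 213 lower). Median-of-ratios rescaling gave 1952 higher and 1418 lower, quantile normalization 1207 lower, and array weights 268 lower. The length and GC correction, added after seeing the data, gave 1719 higher and 918 lower, and with the replicate block 1771 genes in all, 1220 of them higher. The median log2 fold change of all genes was 0.020 with no filter, -0.016 after rescaling, -0.00026 after quantile normalization, and 0.030 and 0.036 with the correction without and with the block. Pseudocounts of 0.1 and 5, no filter, a filter of 5 TPM and leaving out mitochondrially encoded genes kept each count within 1.5 times. The causes were not tested.

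Replicate numbers are shared between the weeks. Deviations from each week's gene means correlated at -0.26, 0.20 and 0.025 between same-numbered libraries, which were not always the best match. Pairing was thus not shown, and so few correlations cannot exclude it. With the number as a replicate block, 2408 genes passed, 2047 higher and 361 lower. The block ended 49 calls and added 3 among the 329 tested genes named here.

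Of those 329 genes, 206 passed, and 85 passed with the same direction under every setting tried. Leaving out week 2 replicate 2 ended 99 calls. Without week 2 replicate 1, 17 ended and 23 were added, and without week 2 replicate 3, 35 and 18. The length and GC correction ended 45 and added 12, and with the replicate block 75 and 7. A fit of weeks 2 and 3 alone ended 75 and added 1. Array weights ended 53 and added 6. The log2(TPM + 1) scale understates changes of genes near 1 TPM. All genes whose direction turned, given next with their log2 fold changes, had not passed.

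With array weights, the sign turned for Dgat1 (0.099), Plin2 (0.055), Wap (-0.11), Krt6a (0.12), Myh11 (0.13), Smad7 (0.077), Nr1d1 (0.15), Ncr1 (0.11), Pdgfra (0.14) and Acta1 (-0.21). With the replicate block, the sign turned for Hk2 (-0.0055), Cxcl2 (-0.044), Btn1a1 (-0.025), Mmp2 (-0.058), Arntl (-0.0090) and Lyve1 (-0.026). After the length and GC correction, the sign turned for Hk2 (-0.30), Phgdh (-0.072), Irf1 (-0.076), Tap1 (-0.14), Nlrc5 (-0.24), Csf1 (-0.32), Btn1a1 (-0.16), Mmp2 (-0.23), Areg (0.016), Axin2 (-0.011), Smad3 (-0.14), Mki67 (-0.047), Ccnb1 (0.027), Ccnd1 (-0.080), Arntl (-0.17), Per2 (-0.092), Dbp (-0.14), Bcl2 (-0.10), Csf1r (-0.28), Ncr1 (0.26), Pecam1 (-0.072) and Cdh5 (-0.058). With the length and GC correction and the replicate block, the sign turned for Cpt1a (-0.0035), Hk2 (-0.35), Phgdh (-0.038), Hsph1 (-0.058), Irf1 (-0.022), Tap1 (-0.011), Nlrc5 (-0.13), Csf1 (-0.34), Btn1a1 (-0.20), Mmp2 (-0.39), Mmp9 (-0.00086), Areg (0.014), Axin2 (-0.0078), Smad3 (-0.21), Mki67 (-0.029), Ccnb1 (0.090), Ccnd1 (-0.028), Arntl (-0.19), Per2 (-0.092), Dbp (-0.17), Bcl2 (-0.11), Csf1r (-0.32), Ncr1 (0.22), Pecam1 (-0.12), Cdh5 (-0.0090) and Lyve1 (-0.029). After median-of-ratios rescaling, the sign turned for Hk2 (-0.11), Asns (-0.067), Phgdh (-0.014), Slc7a11 (-0.043), Irf1 (-0.12), Cxcl2 (-0.10), Csf1 (-0.099), Btn1a1 (-0.11), Mmp2 (-0.054), Arntl (-0.14), Bcl2 (-0.038), Csf1r (-0.019), Cd68 (-0.062), Pecam1 (-0.030) and Lyve1 (-0.092). After quantile normalization, the sign turned for Hk2 (-0.12), Asns (-0.11), Slc7a11 (-0.031), Csf1 (-0.032), Btn1a1 (-0.054), Ccne1 (-0.025), Arntl (-0.19), Bcl2 (-0.092), Csf1r (-0.045), Cd68 (-0.076), Pecam1 (-0.061) and Lyve1 (-0.025). With a pseudocount of 5, the sign turned for Lyve1 (-0.031). Rescaled without mitochondrially encoded genes, the sign turned for Arntl (-0.0023). Leaving out 1 library at a time, the sign turned at least once for genes with log2 fold changes of -0.26 to 0.23 (Dgat1), -0.14 to 0.058 (Plin2), -0.16 to 0.94 (Cpt1a), -0.28 to 0.42 (Hk2), -0.099 to 0.30 (Slc7a11), -0.042 to 0.43 (Hmox1), -0.14 to 0.18 (Irf1), -0.29 to 0.17 (Nt5e), -0.66 to 0.016 (Cxcl12), -0.46 to 0.46 (Cxcl2), -0.36 to 0.50 (Csf1), -1.02 to 0.093 (C3), -0.77 to 0.31 (Ltf), -0.21 to 0.64 (Csn3), -0.059 to 0.50 (Wap), -0.15 to 0.14 (Btn1a1), -0.78 to 0.24 (Krt6a), -0.58 to 0.19 (Myh11), -0.59 to 0.088 (Cdh2), -0.93 to 0.27 (Col3a1), -0.49 to 0.69 (Mmp2), -0.82 to 0.057 (Mmp3), -0.24 to 1.35 (Mmp9), -0.45 to 0.12 (Areg), -0.089 to 0.63 (Smad3), -0.17 to 0.23 (Smad7), -0.014 to 0.38 (Ccne1), -0.22 to 0.011 (Ccnb1), -0.11 to 0.52 (Ccnd1), -0.096 to 0.091 (Arntl), -0.58 to 0.38 (Nr1d1), -0.019 to 0.47 (Dbp), -0.37 to 0.10 (Mcl1), -0.60 to 0.89 (Csf1r), -0.56 to 0.67 (Cd68), -0.28 to 0.21 (Ncr1), -0.41 to 0.23 (Pdgfra), -0.47 to 0.27 (Rgs5), -0.074 to 0.41 (Pecam1), -0.40 to 0.92 (Cdh5), -0.41 to 0.61 (Lyve1) and -0.46 to 0.84 (Acta1).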
